A study of Mus musculus with 12 samples.

Results

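RNA from the mid-colon of mice on day 4 of dextran sulfate sodium (DSS) was compared with RNA from the mid-colon of mice at day 0. The comparison took in every gene with at least 1 CPM (read counts scaled to the same total in each library) in at least 3 of 12 libraries, and 15246 of 25904 listed gene symbols met this rule (58.9%). The mice were 7 weeks old, specific-pathogen-free, and drank either clean water or water with 3% DSS for 6 days. There were 3 libraries at day 4 and 3 at day 0; 3 each at days 2 and 6 entered the same fit and are used here for the course around day 4. The labels give no strain, sex or genotype. They mark each library by its day and name no water-drinking group at days 2, 4 or 6, so exposure to DSS and the day of harvest cannot be told apart. Nothing in them says that the libraries of a day came from separate mice, so a p-value here covers only the spread among these libraries, and that spread may be technical.

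DSS is a sulfated polysaccharide that damages the colonic epithelium when mice drink it, after which bacteria of the lumen reach the mucosa. The healthy colonic lining is renewed from crypt stem cells into absorptive colonocytes, mucus-secreting goblet cells, hormone-secreting enteroendocrine cells and chemosensory tuft cells. Interferons signal through JAK kinases to STAT and IRF transcription factors, which bind the interferon-stimulated response element (ISRE) and the gamma-activated site (GAS) in promoters. Type I and III interferons act mainly through the ISRE on antiviral genes, and interferon gamma acts mainly through the GAS on guanylate-binding proteins and antigen presentation, with much overlap between them.

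The CPM totals of the libraries stood for 31058910 to 41011003 reads, a small part of them outside the listed genes. Pearson correlations of log2(CPM + 1) were 0.983 to 0.99 among the day 4 libraries, 0.966 to 0.984 among the day 0 libraries and 0.877 to 0.92 between the days. The epithelial and goblet cell genes Krt20 and Muc2 were present in every library, with 1281, 861 and 1054 CPM of Krt20 at day 4 and 1080.3, 846 and 1078 CPM at day 0, and 7285, 9773 and 9239 CPM of Muc2 at day 4 and 10093, 17745 and 13394 CPM at day 0. Transcripts of the ribosomal RNA precursor Rn45s took 0.339 to 0.569% of a day 4 library and 1.63 to 5.57% of a day 0 library. The 100 most abundant genes took 18.3 to 19.3% of a day 4 library and 25.1 to 26.9% of a day 0 library. At day 6, replicate 2 stood apart on the second principal component (at -67.85), and replicate 3 lay among the day 4 libraries, at 39.2 and 25.51 on the first and second components, beside replicate 3 of day 4 at 41.27 and 25.96.

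Colonic transcription at day 4 differed from day 0 in 33.2% of the genes tested, in both directions. A gene was called higher or lower when its adjusted p from limma was below 0.05, after Benjamini-Hochberg adjustment over all 15246 genes. By that rule 3225 genes were higher (21.2% of those tested) and 1833 were lower (12%), 5058 in all. Without adjustment, 6710 genes had a p below 0.05. Log2 fold changes are day 4 over day 0 of log2(CPM + 1), a scale that compresses the change of genes with few reads, and they are given with their standard error. The fold exceeded 2 for 1401 of the higher and 841 of the lower genes, 4 for 386 and 180, and 16 for 65 and 8. The 3 day 4 values lay entirely above the 3 day 0 values for 3215 of the genes called higher and entirely below them for 1818 of those called lower. Over all genes tested, called or not, the share with no overlap was 34.0% upward and 20.0% downward. When each of the 12 libraries was left out in turn, 2034 of the higher and 1077 of the lower genes kept their call every time.

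The split between higher and lower depended on scaling. Higher genes made up 63.8% of calls as deposited, 58.2% (2853 higher, 2051 lower) when Rn45s and mitochondrial genes were removed before scaling, 50.6% (2431 and 2373) with median-of-ratios scaling and 46.9% (2309 and 2619) with quantile normalization. Over all genes the log2 fold change had a median of 0.13 as deposited, and the medians of gene lists below are given relative to it. No gene called higher or lower as deposited was called in the opposite direction under these other scalings.

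Calls were few 2 days earlier, though mean levels of some genes already differed from day 0 without a call. At days 0, 2 and 4 the means were 1489, 329 and 16.1 CPM for Ang4 and 957, 374.5 and 83.9 CPM for Jchain. Cyp2c55 went the other way at day 2, with 1090.8, 2769.6 and 33.8 CPM. Between day 2 and day 0 there were 49 calls (0.321% of genes), 18 higher (0.118%) and 31 lower (0.203%), against 5180 calls between day 4 and day 2 (34.0%). Of the 3225 genes higher at day 4 than at day 0, 2386 were also called higher than at day 2 (74.0%), and of the 1833 lower genes 1322 were also called lower than at day 2 (72.1%). Those comparisons share their day 4 libraries. Day 6 differed from day 4 in 434 genes (2.85%). That last count was 2250 without replicate 3 of day 6, 278 without replicate 2 of day 6, 218 without replicate 1 of day 6, and 127, 213 and 115 without replicate 1, 2 and 3 of day 4. The day 2 count was 557 without replicate 2 of day 6, 85 without replicate 3 of day 6, and 13 to 32 without 1 of the day 0 or day 2 libraries or without replicate 1 or 3 of day 4.

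**Figure D1:**
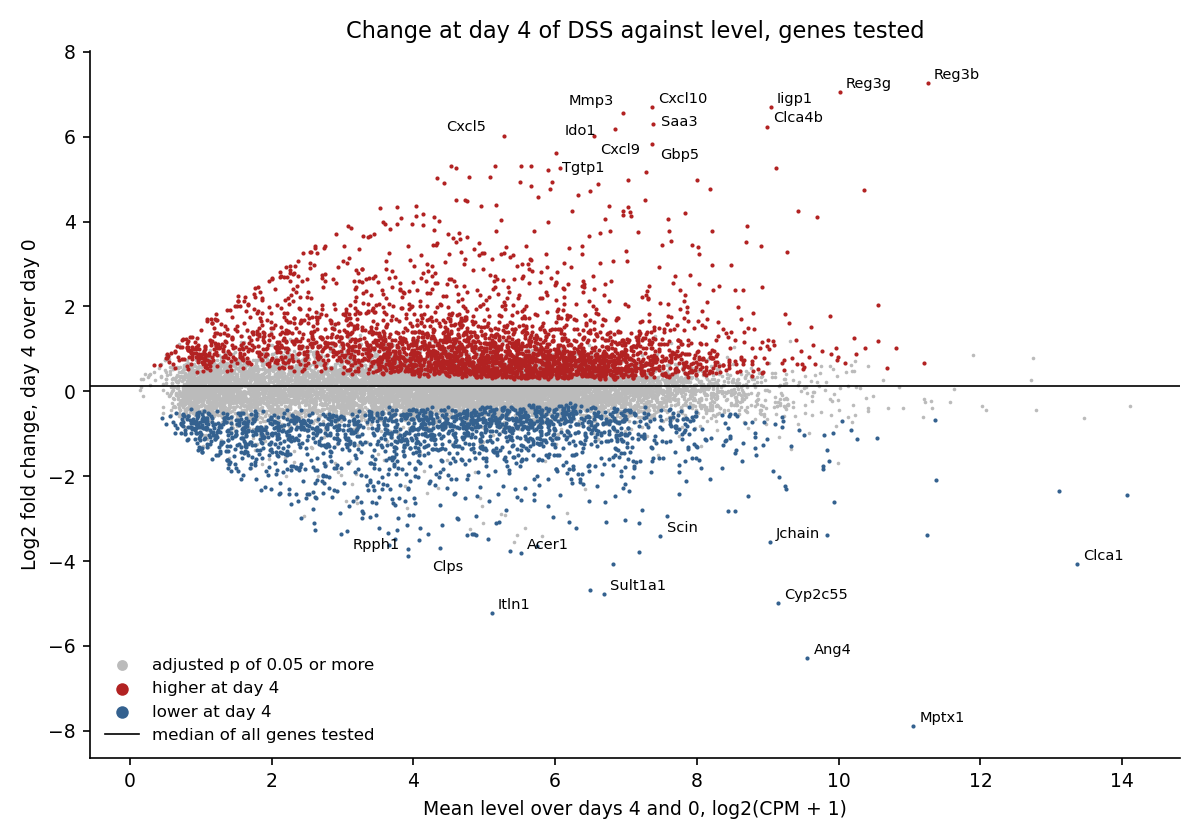
Log2 fold change of every gene tested, day 4 over day 0, against log2(mean CPM + 1), the mean taken over the 6 libraries; 1 point is 1 gene. The 3225 genes called higher and the 1833 called lower are coloured, genes named among the largest rises and falls are labelled, and the line marks the median of all genes at 0.13.

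The largest rises, among genes called higher that averaged at least 5 CPM over both days and did not overlap between them, belonged to genes of several kinds. The lectins Reg3b and Reg3g, which bind bacterial cell walls, led the list. Reg3b had 3938, 3116 and 7432 CPM at day 4, against 6.59, 16.3 and 186 CPM at day 0 (log2 fold change 7.27 ± 1.11, adjusted p = 0.000555). Reg3g had 1583, 1255 and 3284 CPM at day 4, against 4.36, 6.07 and 73.2 CPM at day 0 (log2 fold change 7.05 ± 1.05, adjusted p = 0.000475). Replicate 3 of day 0 was by far the highest day 0 library for both, yet all day 4 values were above it. Iigp1, a GTPase that attacks vacuoles holding intracellular pathogens, had 838, 1407 and 883 CPM at day 4, against 4.92, 14.6 and 9.08 CPM at day 0 (log2 fold change 6.70 ± 0.46, adjusted p = 2.16e-06). Clca4b, which encodes a secreted calcium-activated chloride channel regulator, had 1136, 710.3 and 1132 CPM at day 4, against 4.81, 7.91 and 39.7 CPM at day 0 (log2 fold change 6.24 ± 0.58, adjusted p = 1.83e-05). Its neighbour in the family Clca4a had 534, 289 and 282 CPM at day 4, against 308, 308 and 277 CPM at day 0 (log2 fold change 0.24 ± 0.27, adjusted p = 0.523). The other leading rises were Cxcl10 (6.70), Mmp3 (6.56), Saa3 (6.31), Ido1 (6.18), Cxcl5 (6.03), Cxcl9 (6.03), Gbp5 (5.82) and Tgtp1 (5.61), with the log2 fold change in parentheses.

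The largest falls included genes of secretory and absorptive epithelium. Mptx1, a pentraxin-type lectin of the colonic mucosa, had 47.3, 8.15 and 4.06 CPM at day 4, against 1613, 9085 and 1981 CPM at day 0 (log2 fold change -7.88 ± 1.22, adjusted p = 0.000605). Replicate 2 of day 0 held several times the Mptx1 of the other day 0 libraries, and all 3 day 4 values were far below each of them. Itln1, the lectin intelectin of goblet and Paneth cells, had 0.428, 0.0644 and 0.312 CPM at day 4, against 10.6, 85.5 and 103 CPM at day 0 (log2 fold change -5.23 ± 0.66, adjusted p = 0.00016). Acer1, an alkaline ceramidase that breaks down ceramides, had 5.27, 3.61 and 5.9 CPM at day 4, against 118, 63 and 72.1 CPM at day 0 (log2 fold change -3.82 ± 0.41, adjusted p = 5.22e-05). Scin, an actin-severing protein, had 30.4, 26.3 and 31 CPM at day 4, against 244, 392 and 345 CPM at day 0 (log2 fold change -3.42 ± 0.33, adjusted p = 2.17e-05). Ang4 (-6.29), Cyp2c55 (-5.00), Sult1a1 (-4.77), Clca1 (-4.07) and Jchain (-3.55) also stood among the 12 largest falls and are described with their groups. The list also held genes that are not particular to the colonic epithelium. Clps, the pancreatic cofactor colipase, had 1.77, 1.48 and 1.72 CPM at day 4, against 15.3, 56 and 42.3 CPM at day 0. Rpph1, the RNA of ribonuclease P, had 3, 0.837 and 0.858 CPM at day 4, against 54.1, 16.3 and 20.3 CPM at day 0. In bulk RNA, fewer cells of a type and less RNA per cell cannot be told apart. Reg3b and Reg3g, the Gbp, Cyp2c and Gsdmc genes and Clca4a and Clca4b have close paralogs, and how the authors' counting treated reads that match several copies is not given in the sources used here.

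In CPM, which does not correct for transcript length, the genes called higher gained 162533.7 CPM in sum and the genes called lower decreased by 147902.1 CPM. The loss was concentrated in a few abundant genes, ribosomal RNA among them. The 8 largest gains summed to 16076.3 CPM, and the 8 genes with the largest losses decreased by 68039.8 CPM in sum. The losses included Rn45s, Clca1, Fcgbp, Mptx1, Pigr, Rn18s and Ang4, and the gains were Reg3b, Slfn4, Reg3g, B2m, Ly6a, Igfbp5, Hsp90ab1 and Col3a1. Rn45s, the ribosomal RNA precursor, had the largest loss, with 4935.0, 3391.0 and 5685.9 CPM at day 4. At day 0 it had 55678.1, 16717.2 and 16323.4 CPM (log2 fold change -2.44 ± 0.6, adjusted p = 0.00985), highest in replicate 1. Its call ended with quantile normalization. Rn18s, also ribosomal RNA, had 244.1, 173.6 and 285.2 CPM at day 4, against 3362.1, 913.3 and 887.4 CPM at day 0. Fcgbp, a mucus protein secreted by goblet cells, had 3282, 2118 and 2076 CPM at day 4, against 5955, 28441 and 11200.1 CPM at day 0 (log2 fold change -2.35 ± 0.56, adjusted p = 0.00811). Slfn4, a schlafen family gene of myeloid cells, had 2947, 2246 and 2332 CPM at day 4, against 90.2, 42.1 and 206 CPM at day 0 (log2 fold change 4.74 ± 0.49, adjusted p = 4.12e-05). Igfbp5, which binds insulin-like growth factors, had 998, 1756 and 1166 CPM at day 4, against 52.8, 81 and 66.8 CPM at day 0 (log2 fold change 4.25 ± 0.39, adjusted p = 1.79e-05). Hsp90ab1, a cytosolic chaperone, had 2479, 2384 and 2328 CPM at day 4, against 1034, 1284 and 1239 CPM at day 0 (log2 fold change 1.02 ± 0.24, adjusted p = 0.00823).

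**Figure D2:**
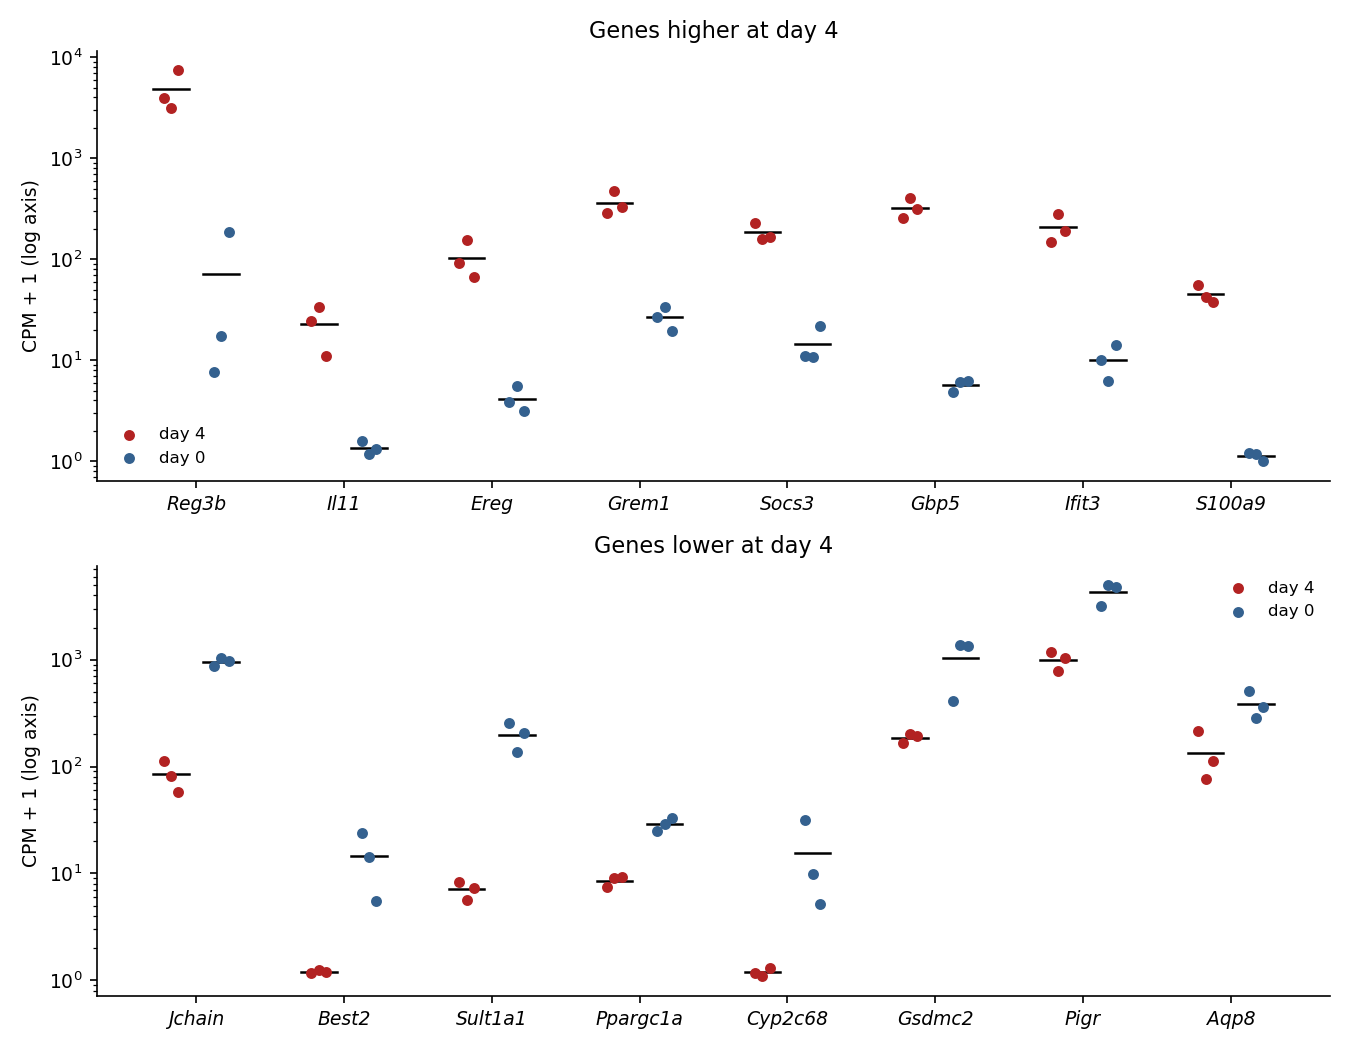
CPM + 1 on a log axis in each of the 3 day 4 libraries (left in each panel) and the 3 day 0 libraries (right); 1 point is 1 library and the line is the group's mean. The upper row holds Reg3b, Il11, Ereg, Grem1, Socs3, Gbp5, Ifit3 and S100a9, which were higher at day 4, and the lower row Jchain, Best2, Sult1a1, Ppargc1a, Cyp2c68, Gsdmc2, Pigr and Aqp8, which were lower.

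Interferon-response genes rose in every member of 3 lists. All 18 guanylate-binding proteins and immunity-related GTPases tested were called higher, as were all 25 antiviral effectors and all 20 genes of MHC class I presentation, against 21.2% of all genes. Their medians lay 4.62, 2.96 and 1.48 above that of all genes. Of 19 interferon receptors, kinases and transcription factors, 16 were higher and none lower. These lists were chosen with results of these data known, so their direction is not independent evidence.

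Some promoters of these genes hold the letters of the elements through which interferon acts, and a stretch of 80 bases of several is printed with the matches in capitals. The ISRE was searched as GAAA, any 2 bases and GAAA and the GAS as TTCNNNGAA, on both strands, in the 250 bases before the annotated start (RefSeq, GRCm38.p6). Capitals that begin and end in TTTC are the ISRE on the other strand. Ifit3 and Isg15 stand for the antiviral genes, Gbp2 and Gbp5 for the GTPases, and Irf1 for a transcription factor with a GAS.
Ifit3 (chr19:34583355-34583434, plus strand): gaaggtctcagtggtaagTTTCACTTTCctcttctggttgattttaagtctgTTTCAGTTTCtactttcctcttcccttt
Isg15 (chr4:156200846-156200925, minus strand): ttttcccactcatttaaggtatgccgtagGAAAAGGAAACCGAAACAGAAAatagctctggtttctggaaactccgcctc
Gbp2 (chr3:142620569-142620648, plus strand): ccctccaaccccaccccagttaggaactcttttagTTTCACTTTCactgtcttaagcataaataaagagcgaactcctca
Gbp5 (chr3:142496734-142496813, plus strand): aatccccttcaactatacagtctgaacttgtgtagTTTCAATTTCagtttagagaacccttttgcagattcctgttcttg
Irf1 (chr11:53769888-53769967, plus strand): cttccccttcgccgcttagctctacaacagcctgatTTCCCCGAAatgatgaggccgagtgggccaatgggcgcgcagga

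Ifit3 has 2 separate ISRE matches in this stretch, 113 to 156 bases before the start. Isg15 has 3 that overlap one another, 57 to 78 bases before the start. Gbp2 and Gbp5 have 1 each, and Irf1 has 1 GAS match, 82 to 90 bases before the start. Promoters, 14928 in all, were at hand for 11736 of the 15246 genes tested. A gene was counted once, as holding a motif if any of its promoters held it, so genes with several promoters had more chances. The ISRE letters were found for 398 of these genes (3.39%), for 5.84% of those called higher and for 1.89% of those called lower. The share was 19.7% for genes higher by over 4-fold (55 of 279). Among genes lower by over 4-fold, none of 109 held it. In the lists, an ISRE match was held by 9 of 10 GTPase genes, 10 of 20 antiviral genes and 3 of 17 MHC class I genes. The GAS letters were found for 7.38% of all genes with a promoter and for 15.8% of those higher by over 4-fold. In the lists they were found for 6 of 10 GTPase, 5 of 20 antiviral and 2 of 17 MHC class I genes. Both elements stood in the same promoter for 44 genes, and in 11 promoters they shared bases. A match is a description of letters and not a measured binding site.

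At the head of the pathway, Ifng, the gene of interferon gamma, had 4.15, 3.22 and 3.85 CPM at day 4 and no read in any day 0 library. That is at least 135-fold higher, taking 3 reads over the 3 day 0 libraries (0.0279 CPM) as the floor. Irf1 had 462, 527 and 433 CPM at day 4, against 159, 136 and 163 CPM at day 0 (log2 fold change 1.63 ± 0.25, adjusted p = 0.000537). Stat2, a transcription factor downstream of type I and III interferons, had 318, 410.1 and 355 CPM at day 4, against 59.9, 56 and 92.2 CPM at day 0 (log2 fold change 2.39 ± 0.19, adjusted p = 5.5e-06). Of the type I receptor chains, Ifnar2 rose by 1.52 on the log2 scale and Ifnar1 by 0.37, while the interferon gamma receptor genes did not pass the test with values as deposited (Ifngr1 (0.30) and Ifngr2 (-0.53)). Ifnar1 lost its call, and Ifngr2 was called lower, with median-of-ratios scaling, quantile normalization, Rn45s and mitochondrial genes removed, edgeR or DESeq2. The feedback inhibitors Socs1 and Usp18 rose too. Socs1 had 63.5, 78.7 and 64.1 CPM at day 4, against 4.17, 5.54 and 9.92 CPM at day 0 (log2 fold change 3.27 ± 0.52, adjusted p = 0.000686). Usp18 had 83.5, 71.4 and 68.7 CPM at day 4, against 8.61, 2.77 and 13.8 CPM at day 0 (log2 fold change 3.21 ± 0.46, adjusted p = 0.000338). The call was lost for Ifnar1 without any library of day 0, any library of day 2, any library of day 4 or replicate 1 of day 6 (adjusted p = 0.0639 to 0.144). The threshold was passed for Ifngr2 without replicate 2 of day 0 or replicate 2 or 3 of day 6 (adjusted p = 0.0168 to 0.0428).

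Among the GTPases, Gbp5, which recruits inflammasome components and attacks bacterial membranes, had 258, 402 and 312 CPM at day 4, against 3.82, 5.08 and 5.22 CPM at day 0 (log2 fold change 5.82 ± 0.24, adjusted p = 1.11e-07). Gbp2 had 800.3, 1528 and 906 CPM at day 4, against 25, 26 and 26.7 CPM at day 0 (log2 fold change 5.27 ± 0.29, adjusted p = 6.31e-07). Igtp had 448, 758 and 475 CPM at day 4, against 17.8, 17.1 and 22.2 CPM at day 0 (4.78). Irgm1 had 433, 556 and 429 CPM at day 4, against 40.9, 45 and 62.3 CPM at day 0 (3.24). The lowest day 4 value was above the highest day 0 value for each of these genes, and replicate 2 was the highest of the day 4 libraries for each. The smallest rise in the list was that of Gvin1 (1.30).

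Among the antiviral effectors, Ifi44 had 107, 126 and 111 CPM at day 4, against 1.24, 1.56 and 4.3 CPM at day 0 (log2 fold change 5.21 ± 0.31, adjusted p = 8.4e-07). Ifit3 had 147, 281 and 189.7 CPM at day 4, against 9.12, 5.29 and 13.1 CPM at day 0 (log2 fold change 4.37 ± 0.36, adjusted p = 7.94e-06). Isg15, a ubiquitin-like modifier, had 261, 246 and 226 CPM at day 4, against 13.1, 3.74 and 24.7 CPM at day 0 (log2 fold change 4.35 ± 0.51, adjusted p = 9.52e-05). Replicate 3 was the highest of the day 0 libraries for each of these 3 genes. Oas3, a synthetase of oligoadenylates, had 395, 335 and 336 CPM at day 4, against 12.7, 10.9 and 57.9 CPM at day 0 (4.06). Rsad2, the gene of viperin, had 90.8, 74.2 and 69.7 CPM at day 4, against 9.04, 5.01 and 26.8 CPM at day 0 (2.73). The double-stranded RNA sensors Ddx58 and Ifih1 had log2 fold changes of 2.47 and 1.66, and the smallest rise in the list was that of Isg20 (0.81).

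The antiviral effectors and the GTPases are set side by side for the days that followed. At day 6, 18 of the 25 antiviral effectors were called lower than at day 4 and none higher, against 0.951% and 1.9% of all genes. None of the 18 GTPases was called in either direction between those days by limma; 2 had an unadjusted p below 0.05, edgeR called none and DESeq2 called 1, lower. The difference between the lists was not tested as such. The antiviral count was 7, 8 and 6 without replicate 1, 2 and 3 of day 4. Mean levels of Ifit3 were 9.19 ± 3.93, 5.95 ± 2.25, 206 ± 68.5 and 34.4 ± 11 CPM at days 0, 2, 4 and 6 (SD, n = 3 each), and those of Gbp5 were 4.71 ± 0.771, 4.82 ± 1.56, 324 ± 72.9 and 294 ± 67.3 CPM at days 0, 2, 4 and 6. Mx1, a dynamin-like antiviral GTPase, ran at 15.7 ± 6.74, 9.97 ± 1.5, 92.5 ± 7.35 and 11.8 ± 4.4 CPM at days 0, 2, 4 and 6, so its day 6 level was near that of day 0. Ifit3 had 37.7, 22.1 and 43.5 CPM in the day 6 libraries (log2 fold change -2.55 ± 0.36, adjusted p = 0.00521, day 6 over day 4). Of the 88 genes higher at day 4 than at both day 0 and day 6, 69 had a promoter at hand and 20 of these (29.0%) held an ISRE match.

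**Figure D3:**
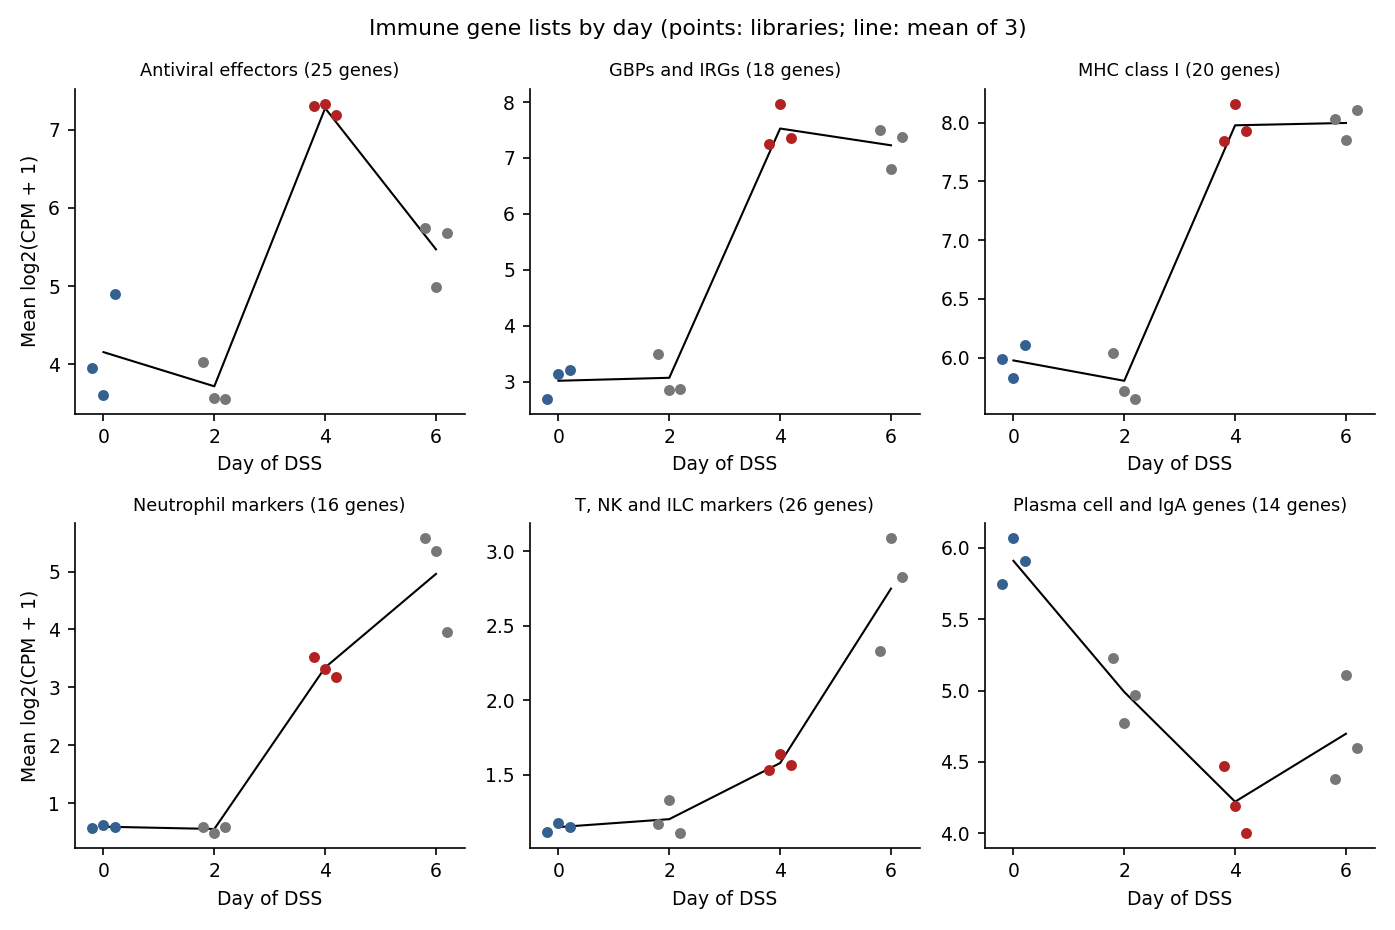
Mean log2(CPM + 1) over the tested members of 6 immune gene lists in each library, by day of harvest; 1 point is 1 library and the line joins the means of the days. The antiviral effectors were highest at day 4, while the GTPases and MHC class I genes were near their day 4 level at day 6 and neutrophil markers were highest at day 6.

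Antigen presentation moved unevenly between its classes. Nlrc5, the transactivator of MHC class I genes, had 133, 169 and 125 CPM at day 4, against 3.5, 9.9 and 7.48 CPM at day 0 (log2 fold change 4.25 ± 0.29, adjusted p = 2.16e-06). Tap1, a subunit of the peptide transporter, had 423, 497 and 416 CPM at day 4, against 34.5, 36.8 and 47.8 CPM at day 0 (log2 fold change 3.46 ± 0.26, adjusted p = 4.35e-06). Psmb8, an immunoproteasome subunit, had 200.2, 267 and 219.6 CPM at day 4, against 26.3, 21.5 and 31.7 CPM at day 0 (log2 fold change 3.07 ± 0.24, adjusted p = 5.77e-06). B2m, the light chain common to class I molecules, had 2233, 2608 and 2363 CPM at day 4, against 549, 474 and 776 CPM at day 0 (log2 fold change 2.03 ± 0.20, adjusted p = 2.87e-05). The classical heavy chains H2-K1 and H2-D1 were abundant at both days and rose by 1.03 and 1.25 on the log2 scale. Of 12 class II genes, 6 were higher and 1 was lower. Ciita, the class II transactivator, had 21.5, 38.9 and 30.1 CPM at day 4, against 5.14, 9.62 and 7.64 CPM at day 0 (log2 fold change 1.88 ± 0.36, adjusted p = 0.00247). The other higher genes included H2-DMa (1.41), Ctss (1.11) and Cd86 (1.48). The class II chains themselves did not pass the test. H2-Ab1 had 183, 276 and 233 CPM at day 4, against 161, 146 and 137 CPM at day 0 (adjusted p = 0.0948). Cd74, the invariant chain, had 288, 418 and 356 CPM at day 4, against 184, 278 and 237 CPM at day 0 (adjusted p = 0.135). The lower gene was H2-Ob, a class II modulator of B cells (-0.87). A call was gained for Cd74 without replicate 3 of day 6 (adjusted p = 0.0451) and H2-Ab1 without replicate 3 of day 6 (adjusted p = 0.0314).

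Chemokines for neutrophils, monocytes and T cells rose. Of 18 CXC chemokines and receptors 10 were higher and 1 lower, with a median 1.54 above that of all genes, and of 21 CC chemokines and receptors 14 were higher and 3 lower, with a median 1.7 above. Cxcl5, a ligand of the neutrophil receptor CXCR2, had 84.7, 73.5 and 68.8 CPM at day 4, against 0.108, 0.187 and 0.21 CPM at day 0 (log2 fold change 6.03 ± 0.25, adjusted p = 1.11e-07). Cxcl1 had 29.3, 20.5 and 24.8 CPM at day 4, against 0.215, 0.436 and 0.157 CPM at day 0 (4.34). Cxcl2, like Cxcl1 a ligand of the same receptor, had 23.1, 11.2 and 11.6 CPM at day 4, against 0.0538, 0.125 and 0.0525 CPM at day 0 (3.85). The receptor gene Cxcr2 had 11.7, 8.76 and 6.29 CPM at day 4 and 1 read over the 3 day 0 libraries. Cxcl9, a ligand of the T cell receptor CXCR3, had 159, 229 and 161 CPM at day 4, against 0.538, 4.02 and 1.76 CPM at day 0 (log2 fold change 6.03 ± 0.39, adjusted p = 1.44e-06). Ccl2 had 99.4, 94.7 and 99.5 CPM at day 4, against 1.37, 1.43 and 1.65 CPM at day 0 (log2 fold change 5.32 ± 0.21, adjusted p = 1.05e-07). Ccl7 had 43.3, 56.7 and 49 CPM at day 4, against 1.21, 1.25 and 1.21 CPM at day 0 (log2 fold change 4.50 ± 0.19, adjusted p = 1.11e-07). Both are ligands of the monocyte receptor CCR2, and its gene Ccr2 had 53.4, 90.8 and 69.6 CPM at day 4, against 4.52, 7.19 and 5.51 CPM at day 0. The chemokine gene Ccl28 and its receptor Ccr10, which bring IgA-secreting cells to the colon, went the other way. Ccl28 had 50, 33.1 and 43.3 CPM at day 4, against 139, 142 and 153 CPM at day 0 (log2 fold change -1.77 ± 0.45, adjusted p = 0.0106). Ccr10 had 1.26, 1.48 and 1.4 CPM at day 4, against 9.63, 9.93 and 7.82 CPM at day 0 (log2 fold change -2.08 ± 0.17, adjusted p = 6.43e-06). The platelet chemokine Pf4 (-1.14) and Ccl6 (-1.12) were also lower. A call no longer held for Ccl6 without replicate 1 of day 0 (adjusted p = 0.0507) and Pf4 without replicate 1 or 2 of day 0 or any library of day 4 (adjusted p = 0.05 to 0.101).

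The promoters of Cxcl10 and Cxcl2 show the NF-kB element, searched as GGGA, any 2 bases and TTCC on both strands. It was found for 1.53% of all genes with a promoter and for 4 of 14 CXC chemokine and receptor genes (Cxcl1, Cxcl2, Cxcl3 and Cxcl10). In the Cxcl10 stretch the first capitals mark an ISRE match and the second an NF-kB match, and in the Cxcl2 stretch the capitals mark a pair of NF-kB matches that overlap.
Cxcl10 (chr5:92349031-92349110, minus strand): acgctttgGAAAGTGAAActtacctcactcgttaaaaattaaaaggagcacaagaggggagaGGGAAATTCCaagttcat
Cxcl2 (chr5:90903767-90903846, plus strand): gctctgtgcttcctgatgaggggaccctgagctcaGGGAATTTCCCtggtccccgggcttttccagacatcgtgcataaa

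Many genes of the IL-1 and IL-6 families rose, some of them from very low day 0 levels. Of 12 genes of the IL-1 family 9 were higher and none lower, with a median 1.97 above that of all genes. Il1b had 89.9, 61.7 and 53.6 CPM at day 4, against 0.78, 0.872 and 0.525 CPM at day 0 (log2 fold change 5.30 ± 0.28, adjusted p = 5.96e-07). Its antagonist was raised as well. Il1rn had 139.6, 122 and 114 CPM at day 4, against 24, 31 and 34.5 CPM at day 0 (log2 fold change 2.05 ± 0.23, adjusted p = 6.44e-05). Il18bp, the secreted inhibitor of IL-18, had 68.6, 78.5 and 62.9 CPM at day 4, against 1.8, 4.08 and 4.62 CPM at day 0 (log2 fold change 4.04 ± 0.24, adjusted p = 8.4e-07), whereas Il18 itself had 50.9, 24.3 and 40.8 CPM at day 4 and 30.4, 18.5 and 26.3 CPM at day 0 (adjusted p = 0.193). Of 14 genes of the IL-6 family 10 were higher and 1 lower. Il6 had 12.1, 11.8 and 6.63 CPM at day 4 and 1 read in all at day 0. Il11, a cytokine of stromal cells, had 23.2, 32.7 and 9.94 CPM at day 4, against 0.592, 0.187 and 0.315 CPM at day 0 (log2 fold change 3.94 ± 0.38, adjusted p = 2.19e-05). Socs3, the feedback inhibitor of STAT3 signalling, had 229, 156 and 165 CPM at day 4, against 10, 9.81 and 20.6 CPM at day 0 (log2 fold change 3.73 ± 0.29, adjusted p = 5.41e-06). Osmr, the receptor of oncostatin M, had 76.4, 103 and 78.1 CPM at day 4, against 7.93, 12.3 and 12.5 CPM at day 0 (2.88), and its ligand Osm had a log2 fold change of 2.23. The lower gene was Ctf1, a cytokine of the same family (-1.20).

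In the group of interleukins 10, 17, 22 and 23, 5 of 12 genes were higher and 2 lower, against 21.2% and 12% of all genes. Il22, whose protein acts on epithelium and induces Reg3 lectins, had 7.17, 3.38 and 1.9 CPM at day 4 and no read at day 0, at least 149-fold higher against the floor of 3 reads. Il19 also had no read at day 0 and 1.58, 0.386 and 1.56 CPM at day 4, at least 43.9-fold higher. The receptor Il22ra1 had 76.3, 49.1 and 63 CPM at day 4 and 72.9, 73.6 and 70.5 CPM at day 0 (adjusted p = 0.499). The decoy receptor of IL-22, Il22ra2, had 0.428, 0.29 and 0.312 CPM at day 4, against 1.37, 2.74 and 2.18 CPM at day 0 (log2 fold change -1.18 ± 0.27, adjusted p = 0.00699). The receptor of IL-17C, Il17re, was lower as well (-1.34).

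NF-kB components and pattern receptors shifted upward with smaller folds. Of 24 genes of TNF and NF-kB signalling 19 were higher and none lower, with a median 0.72 above that of all genes. Tnfaip2 had 156, 198 and 139.6 CPM at day 4, against 10.9, 14.8 and 10.8 CPM at day 0 (log2 fold change 3.65 ± 0.20, adjusted p = 6.31e-07). Tnf had 31, 12 and 12.5 CPM at day 4, against 2.04, 1.37 and 2.73 CPM at day 0, with a log2 fold change of 2.57. The death-signalling kinase gene Ripk3 rose by 2.12 and the NF-kB subunit gene Rel by 1.26. Of 20 Toll-like receptors and adaptors 12 were higher and none lower. The receptors of nucleic acids Tlr9 (2.84), Tlr13 (2.40), Tlr8 (1.84) and Tlr7 (1.75) led, above Tlr2 for bacterial lipoproteins (1.18). Tlr9, a receptor of unmethylated DNA, had 16.3, 28 and 21.3 CPM at day 4, against 1.67, 2.58 and 2.15 CPM at day 0 (log2 fold change 2.84 ± 0.21, adjusted p = 2.97e-06).

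The cell-death genes divided. Of 26 inflammasome, caspase and gasdermin genes 8 were higher and 5 lower, against 21.2% and 12% of all genes. Their median equalled that of all genes. Mlkl, the executor of necroptosis, had 116, 121 and 108 CPM at day 4, against 19.2, 18.3 and 24.1 CPM at day 0 (log2 fold change 2.44 ± 0.22, adjusted p = 1.56e-05). Gsdmd, the pore-forming protein of pyroptosis, had 221, 206 and 201 CPM at day 4, against 95.2, 63.3 and 76.3 CPM at day 0 (log2 fold change 1.43 ± 0.15, adjusted p = 4.89e-05). Nlrp3 had 14.5, 8.05 and 9.18 CPM at day 4, against 0.834, 0.997 and 0.787 CPM at day 0, with a log2 fold change of 2.59, and Casp8 rose by 1.57. The gasdermin C genes, which epithelial cells express, fell. Gsdmc2 had 166, 199 and 191 CPM at day 4, against 412, 1368 and 1338 CPM at day 0 (log2 fold change -2.30 ± 0.54, adjusted p = 0.00761). Gsdmc3 had 20.1, 21.1 and 35.3 CPM at day 4, against 119, 271 and 288 CPM at day 0 (log2 fold change -3.04 ± 0.57, adjusted p = 0.00204). Gsdmc had 2.36, 1.84 and 1.59 CPM at day 4, against 3.23, 7.97 and 8.74 CPM at day 0 (log2 fold change -1.30 ± 0.31, adjusted p = 0.00786). Gsdmc4 had 412, 432 and 394 CPM at day 4, against 609, 1983 and 1742 CPM at day 0, with a log2 fold change of -1.63. The lower count was 3 without replicate 3 of day 0 or without replicate 1 or 2 of day 4, while Gsdmc, Gsdmc2 and Gsdmc3 kept their calls in all 12 omissions. The adjusted p rose above 0.05 for Gsdmc4 without replicate 2 or 3 of day 0 or any library of day 4 (adjusted p = 0.0706 to 0.107).

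Myeloid genes rose and genes of antibody secretion fell. Of 16 neutrophil markers 15 were higher and none lower, with a median 2.42 above that of all genes, or 3.37 with the genes at 0 in day 0 set at their lower bound. S100a9, a subunit of calprotectin, had 54.1, 41.7 and 36.6 CPM at day 4, against 0.215, 0.187 and 0 CPM at day 0 (log2 fold change 5.30 ± 0.37, adjusted p = 2.38e-06). Ly6g had 176, 141 and 141 CPM at day 4, against 8.45, 4.89 and 3.25 CPM at day 0 (log2 fold change 4.63 ± 0.58, adjusted p = 0.000145). Csf3r, the receptor of granulocyte colony-stimulating factor, had 59.1, 63.7 and 51.3 CPM at day 4, against 1.37, 2.55 and 1.68 CPM at day 0 (log2 fold change 4.38 ± 0.19, adjusted p = 1.36e-07). Trem3 had 2.38, 2.64 and 1.79 CPM at day 4 and no read at day 0, at least 80.3-fold higher. The granule gene Ngp stood at 0.214, 0.258 and 0.234 CPM at day 4 and did not pass the test.

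Of 27 monocyte and macrophage markers 17 were higher and 1 lower, with a median 1.08 above that of all genes. Nos2, which makes nitric oxide, had 309, 118 and 182 CPM at day 4, against 9.58, 8.16 and 25.4 CPM at day 0 (log2 fold change 3.79 ± 0.50, adjusted p = 0.00021). Fcgr1, a high-affinity receptor of IgG, had 40.7, 59.4 and 46.5 CPM at day 4, against 3.15, 2.87 and 2.94 CPM at day 0 (log2 fold change 3.63 ± 0.22, adjusted p = 8.4e-07). Ly6c2 had 65.4, 126 and 85.1 CPM at day 4, against 13.9, 25.8 and 17.3 CPM at day 0 (2.21). Genes typical of resident macrophages were mixed. Mertk, a receptor for the uptake of dead cells, was the lower gene. Mertk had 20.8, 19.2 and 23.6 CPM at day 4, against 28.2, 40.7 and 39.1 CPM at day 0 (log2 fold change -0.72 ± 0.24, adjusted p = 0.0376). Cd163, the haemoglobin scavenger receptor, had 10.7, 11.6 and 12.9 CPM at day 4, against 7.15, 6.73 and 5.51 CPM at day 0 (adjusted p = 0.135). Trem2 had 1.74, 1.84 and 1.53 CPM at day 4, against 3.44, 2.02 and 2.34 CPM at day 0 (adjusted p = 0.124). C1qc, a chain of the first complement component, had 61.4, 88.9 and 64.5 CPM at day 4, against 48.5, 33 and 34.3 CPM at day 0 (adjusted p = 0.0191). With 1 library left out, the call ended for C1qc without replicate 2 or 3 of day 0 or replicate 2 of day 4 (adjusted p = 0.0609 to 0.0809) and Mertk without replicate 2 or 3 of day 0, replicate 3 of day 2, any library of day 4 or replicate 1 of day 6 (adjusted p = 0.0501 to 0.114). With 1 library left out, a call was gained for Cd163 without replicate 2 of day 6 (adjusted p = 0.0235).

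Some lymphocyte markers rose at day 4. Of 26 markers of T, NK and innate lymphoid cells 9 were higher and 2 lower, against 21.2% and 12% of all genes, with a median 0.09 above that of all genes. The higher genes were mostly cytotoxic or activation genes, such as Klrk1 (2.26), Gzmb (2.20), Gzma (1.43) and Il2ra (1.21). Cd3e, a chain of the T cell receptor complex, had 1.31, 1.16 and 1.43 CPM at day 4, against 1.26, 2.24 and 1.76 CPM at day 0 (adjusted p = 0.499). Cd8a had 1.12, 1.93 and 2.21 CPM at day 4, against 0.565, 0.841 and 1.26 CPM at day 0 (adjusted p = 0.211). Between day 4 and day 6, 16 of the 26 were called higher, against 1.9% of all genes, and 8 without replicate 1 or 3 of day 4. Cd3e ran at 1.75 ± 0.489, 1.41 ± 0.424, 1.3 ± 0.136 and 4.25 ± 1.84 CPM at days 0, 2, 4 and 6.

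Most plasma cell genes fell. Of 14 genes of plasma cells and IgA secretion 10 were lower and 1 higher, with a median 2.04 below that of all genes, against 12% of all genes lower. Jchain, which joins IgA into dimers, had 113, 81.3 and 57.4 CPM at day 4, against 874, 1025 and 971 CPM at day 0 (log2 fold change -3.55 ± 0.45, adjusted p = 0.000152). Igha, the constant region of IgA, had 577, 398 and 312 CPM at day 4, against 3275, 5034 and 4935 CPM at day 0 (log2 fold change -3.38 ± 0.52, adjusted p = 0.000586). Pigr, the epithelial receptor that carries IgA into the lumen, had 1179.5, 778 and 1047 CPM at day 4, against 3189, 4978 and 4741 CPM at day 0 (log2 fold change -2.10 ± 0.39, adjusted p = 0.0021). Mzb1, an endoplasmic reticulum chaperone of plasma cells, had 1.77, 1.22 and 0.676 CPM at day 4, against 18.1, 25.7 and 15.1 CPM at day 0 (log2 fold change -3.21 ± 0.45, adjusted p = 0.000318). Irf4 had 3, 2.51 and 2.31 CPM at day 4, against 11.9, 19.6 and 15.9 CPM at day 0 (log2 fold change -2.20 ± 0.34, adjusted p = 0.000616). The higher gene was Prdm1, which plasma cells share with T cells and epithelium (0.87). Of 9 B cell markers 3 were lower and 1 was higher. Cd79a, a signalling chain of the B cell receptor, had 0.964, 1.42 and 0.936 CPM at day 4, against 5.27, 7.69 and 6.85 CPM at day 0 (-1.85). The decline was also seen against day 2, where 7 of the 14 plasma cell and IgA genes were lower (12.9% of all genes were). The call was lost for Prdm1 without replicate 1 of day 4 (adjusted p = 0.0714).

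Complement and acute phase genes, oxidant enzymes and the tryptophan and NAD pathway were raised. Of 18 complement genes 14 were higher and none lower, with a median 1.3 above that of all genes. C3, the central component, had 447, 838 and 609.6 CPM at day 4, against 50.2, 111 and 80.8 CPM at day 0 (log2 fold change 2.98 ± 0.53, adjusted p = 0.00142). Cfb, the protease of the alternative pathway, had 324, 412 and 360.3 CPM at day 4, against 74.8, 68.5 and 106 CPM at day 0 (log2 fold change 2.14 ± 0.19, adjusted p = 1.5e-05). Of 14 acute phase proteins and Reg lectins 11 were higher and 1 lower, with a median 2.85 above that of all genes and 3.99 with genes at 0 set at their bound. Saa3, a serum amyloid, had 209.6, 441 and 330.1 CPM at day 4, against 0.699, 3.74 and 6.72 CPM at day 0 (log2 fold change 6.31 ± 0.64, adjusted p = 3.33e-05). Lrg1 had 165, 63.6 and 131 CPM at day 4, against 2.34, 2.34 and 3.39 CPM at day 0 (log2 fold change 4.94 ± 0.32, adjusted p = 1.63e-06). Saa1, a serum amyloid of colonic epithelium, had 533, 224 and 358 CPM at day 4, against 579.7, 275 and 402 CPM at day 0, and it did not pass the test (adjusted p = 0.743). The lectin Reg3a had 1.58, 1.67 and 3.49 CPM at day 4 and no read at day 0, at least 82.1-fold higher, and Reg3d likewise had 0.642, 1.13 and 2.68 CPM at day 4 and no read at day 0, at least 54.3-fold higher. Another Reg gene fell. Reg4, a gene of secretory cells of the colonic crypt, had 2.65, 1.87 and 3.12 CPM at day 4, against 23.7, 118 and 15.2 CPM at day 0 (log2 fold change -3.37 ± 0.76, adjusted p = 0.00573).

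Of 14 oxidant-producing enzymes 9 were higher and 1 lower, with a median 1.06 above that of all genes. Acod1, a list member that makes itaconate in macrophages rather than an oxidant, had 52.9, 27.1 and 34.2 CPM at day 4, against 0.269, 0 and 0.184 CPM at day 0 (log2 fold change 5.04 ± 0.26, adjusted p = 5.3e-07). Cybb, the catalytic subunit of the phagocyte oxidase, had 57.3, 76.7 and 66.2 CPM at day 4, against 8.55, 14.2 and 15 CPM at day 0 (2.35). Duox2, the oxidase of the epithelial surface, had 910.5, 512 and 616 CPM at day 4, against 197, 327 and 474 CPM at day 0 (1.08). Noxa1, an activator of the epithelial oxidase NOX1, fell. Noxa1 had 26.9, 21.6 and 28.3 CPM at day 4, against 93.4, 69.3 and 78.7 CPM at day 0 (log2 fold change -1.61 ± 0.42, adjusted p = 0.0131). Of 15 genes of the tryptophan and NAD pathway 10 were higher and 2 lower. Ido1, which begins the breakdown of tryptophan to kynurenine, had 182, 302 and 192 CPM at day 4, against 1.34, 1.84 and 3.25 CPM at day 0 (log2 fold change 6.18 ± 0.40, adjusted p = 1.44e-06). Wars, the tryptophanyl-tRNA synthetase, had 509, 556 and 407 CPM at day 4, against 165, 205 and 197 CPM at day 0 (log2 fold change 1.37 ± 0.33, adjusted p = 0.00924). Cd38, which consumes NAD, had 492, 315 and 397 CPM at day 4, against 106, 131 and 168 CPM at day 0 (1.57). Nampt, which salvages nicotinamide, had 230.1, 254 and 223 CPM at day 4, against 97.3, 73.6 and 98.5 CPM at day 0 (1.39). Naprt, which makes NAD from nicotinic acid, was lower (-1.13). A call no longer held for Duox2 without replicate 1 or 2 of day 0, any library of day 2 or replicate 1 or 3 of day 4 (adjusted p = 0.0532 to 0.148).

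Of 21 genes of prostaglandin synthesis, breakdown and reception 8 were higher and 2 lower, against 21.2% and 12% of all genes. The higher count was 5 without replicate 1 of day 0. Ptgs2, the inducible cyclooxygenase, had 50.4, 60 and 23.2 CPM at day 4, against 6.11, 8.07 and 7.82 CPM at day 0 (log2 fold change 2.35 ± 0.33, adjusted p = 0.000301). Ptges, the prostaglandin E synthase, had 36.2, 33.9 and 30.1 CPM at day 4, against 9.71, 11.2 and 11.1 CPM at day 0 (1.56). Hpgd, which inactivates prostaglandins, had 25.1, 27.4 and 35.5 CPM at day 4, against 153, 114 and 129 CPM at day 0 (log2 fold change -2.14 ± 0.20, adjusted p = 2.19e-05). Ptgs2 and Hpgd moved in opposite directions, with no overlap between the days for either.

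Most matrix proteases rose. Of 26 matrix metalloproteases and inhibitors 20 were higher and 1 lower, with a median 1.51 above that of all genes. Mmp3, or stromelysin, had 210.3, 287 and 235 CPM at day 4, against 1.56, 1.71 and 1.44 CPM at day 0 (log2 fold change 6.56 ± 0.35, adjusted p = 6.08e-07). Mmp10 had 78.7, 106 and 76.9 CPM at day 4, against 1.69, 2.24 and 1.63 CPM at day 0 (log2 fold change 4.94 ± 0.29, adjusted p = 8.4e-07). Mmp13, an interstitial collagenase, had 142, 99.4 and 108 CPM at day 4, against 3.87, 3.39 and 2.57 CPM at day 0 (log2 fold change 4.77 ± 0.26, adjusted p = 6.08e-07). Timp1, the inhibitor of these proteases, had 53.7, 77.8 and 70.5 CPM at day 4, against 2.58, 1.87 and 2.2 CPM at day 0 (log2 fold change 4.40 ± 0.26, adjusted p = 8.4e-07). The membrane-bound protease gene Mmp15 was the lower one (-0.70), and it lost the call without replicate 2 or 3 of day 0 or replicate 1 of day 4 (adjusted p = 0.0548 to 0.0582). The Mmp3 promoter carries an AP-1 element, searched as TGANTCA and found for 6.07% of all genes with a promoter. The share was 16.1% for genes higher by over 4-fold (45 of 279) and 9.17% for genes lower by over 4-fold (10 of 109). It was 7.07% for all genes called higher and 6.61% for all called lower. The Mmp3 match is shown in capitals, 40 to 46 bases before the start.
Mmp3 (chr9:7445739-7445818, plus strand): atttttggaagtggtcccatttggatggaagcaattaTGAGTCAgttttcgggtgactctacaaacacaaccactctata

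The genes of the AP-1 family and other immediate early genes were mostly higher, 9 of 17, with 1 lower. Egr1 had 107, 258 and 72.1 CPM at day 4, against 15.3, 18.9 and 31.8 CPM at day 0 (log2 fold change 2.53 ± 0.50, adjusted p = 0.00288). Junb had 281, 308 and 216 CPM at day 4, against 119, 84.2 and 101 CPM at day 0 (1.39). Fosl1 had 5.03, 4.25 and 2.73 CPM at day 4, against 0.726, 1.46 and 0.682 CPM at day 0 (1.35). Jund was the lower gene (-0.57).

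Of 22 serpins and coagulation genes 12 were higher and 1 lower, led by Serpina3f (4.10) and Serpina3n (3.78). For this and the next lists of the paragraph, the shares of all genes were 21.2% higher and 12% lower. Serpina3n, an inhibitor of serine proteases, had 459.6, 694 and 496 CPM at day 4, against 30.1, 38.1 and 49 CPM at day 0 (log2 fold change 3.78 ± 0.44, adjusted p = 8.11e-05). Collagen genes varied with the libraries used. Of 20 collagens 10 were higher and 2 lower, but 4 were higher without replicate 1 or 3 of day 0, 3 without replicate 2 of day 4 and 5 without replicate 3 of day 4. The basement membrane genes Col18a1 (2.72), Col4a1 (1.82) and Col4a2 (1.84) kept their calls in every omission, and the fibrillar Col3a1 and Col1a1 (1.19) did not. Col4a1 had 751, 1169 and 914 CPM at day 4, against 195, 361 and 256 CPM at day 0 (log2 fold change 1.82 ± 0.38, adjusted p = 0.00392). Col3a1 had 1602, 2711 and 1959.7 CPM at day 4, against 757, 1128 and 841 CPM at day 0 (log2 fold change 1.19 ± 0.30, adjusted p = 0.0107). Of 30 matrix glycoproteins and crosslinking enzymes 19 were higher and none lower. The higher count was 7 and 8 without replicate 1 and 3 of day 0. It was 4 and 8 without replicate 2 and 3 of day 4. Over all 15246 genes, 2612, 2470, 2263 and 2378 were higher in those omissions, in the same order. Vcan, a large proteoglycan, had 97.3, 117 and 75.2 CPM at day 4, against 15.3, 22.7 and 20 CPM at day 0 (log2 fold change 2.26 ± 0.35, adjusted p = 0.000578), and kept its call in all 12 omissions. The adjusted p rose above 0.05 for Col1a1 without replicate 1 or 3 of day 0 or replicate 2 of day 4 (adjusted p = 0.0542 to 0.072) and Col3a1 without replicate 2 of day 4 (adjusted p = 0.0507).

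Of 19 fibroblast markers 9 were higher and 1 lower. Grem1, the secreted antagonist of BMP made by stromal cells around the crypt, had 286, 475 and 327 CPM at day 4, against 25.6, 33 and 18.4 CPM at day 0 (log2 fold change 3.77 ± 0.41, adjusted p = 5.62e-05). Il1rl1, the receptor of IL-33, had 50.8, 55.2 and 42 CPM at day 4, against 3.07, 7.72 and 7.95 CPM at day 0 (log2 fold change 2.87 ± 0.37, adjusted p = 0.000188). Pdpn had 40, 47.8 and 41.1 CPM at day 4, against 19.1, 10.7 and 11.1 CPM at day 0 (log2 fold change 1.63 ± 0.30, adjusted p = 0.00173). Of 32 growth factors of the crypt niche 10 were higher and none lower, against 21.2% and 12% of all genes. Their median was 0.35 above that of all genes. Rspo3, which amplifies Wnt signalling, had 28.6, 52.5 and 33.4 CPM at day 4, against 5.27, 5.2 and 4.7 CPM at day 0 (log2 fold change 2.65 ± 0.34, adjusted p = 0.000182). Sfrp1, a secreted Wnt antagonist, had 104, 216 and 146 CPM at day 4, against 17.5, 48.1 and 23.5 CPM at day 0 (log2 fold change 2.41 ± 0.45, adjusted p = 0.00213). Fst, the antagonist of activin, had 11.6, 17.8 and 13.1 CPM at day 4, against 1.53, 2.55 and 2.62 CPM at day 0 (2.22). Wnt5a had 30.9, 35.5 and 30.1 CPM at day 4, against 11.8, 14.9 and 12.6 CPM at day 0 (1.23).

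Ligands of the EGF receptor separated by member. Of 15 genes 7 were higher and 3 lower, against 21.2% and 12% of all genes. Ereg, or epiregulin, had 90, 153 and 65.9 CPM at day 4, against 2.82, 4.55 and 2.15 CPM at day 0 (log2 fold change 4.59 ± 0.54, adjusted p = 8.87e-05). Areg, or amphiregulin, had 66, 65.4 and 52.9 CPM at day 4, against 9.6, 8.03 and 9.34 CPM at day 0 (log2 fold change 2.64 ± 0.26, adjusted p = 2.43e-05). Nrg1, a neuregulin of mesenchymal cells, had 28.1, 34.5 and 18.2 CPM at day 4, against 3.2, 5.05 and 4.57 CPM at day 0 (log2 fold change 2.38 ± 0.41, adjusted p = 0.00119). Hbegf had 46.5, 40.4 and 31.1 CPM at day 4, against 11.4, 13.3 and 9.89 CPM at day 0 (log2 fold change 1.68 ± 0.28, adjusted p = 0.000998). Egf itself had 1.07, 1.29 and 1.33 CPM at day 4, against 9.28, 5.39 and 6.06 CPM at day 0 (log2 fold change -1.80 ± 0.21, adjusted p = 7.7e-05). The receptor gene Egfr had a log2 fold change of 0.82, and its relative Erbb3 one of -0.78. With 1 library left out, the call ended for Erbb3 without replicate 2 or 3 of day 0 or replicate 2 of day 4 (adjusted p = 0.0507 to 0.1).

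Of 21 endothelial and adhesion genes 8 were higher and none lower, against 21.2% and 12% of all genes. Selp, or P-selectin, had 30.1, 26.6 and 28.8 CPM at day 4, against 0.726, 0.529 and 1.63 CPM at day 0 (log2 fold change 3.95 ± 0.46, adjusted p = 8.52e-05). Icam1 had 92.8, 107 and 90.6 CPM at day 4, against 11, 14.1 and 13.4 CPM at day 0 (log2 fold change 2.82 ± 0.16, adjusted p = 6.21e-07). Both kept their calls in every omission, as did Vcam1 (2.67), Sele (2.13), Ackr1 (1.83) and Madcam1 (1.65). These genes serve the attachment of leukocytes to vessels. The count was 14 without replicate 2 of day 6 and 13 without replicate 3 of day 6.

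Stem cell genes did not move together, and their counts stand beside 21.2% of all genes higher and 12% lower. Of 18 genes of crypt stem cells and Wnt targets 4 were higher and 5 lower, with 2, 1 and 2 higher without replicate 1 of day 0, replicate 2 of day 4 and replicate 3 of day 4, and 3 lower without replicate 2 of day 0 or replicate 1 of day 4. Lgr5, the marker of crypt base columnar cells, had 1.04, 1.19 and 2.37 CPM at day 4, against 5.94, 6.88 and 8.69 CPM at day 0 (log2 fold change -1.71 ± 0.32, adjusted p = 0.00192). Tnfrsf19 had 1.34, 2.45 and 2.65 CPM at day 4, against 6.29, 5.95 and 6.59 CPM at day 0 (log2 fold change -1.24 ± 0.28, adjusted p = 0.00615). Myc had 64.3, 81.5 and 57.5 CPM at day 4, against 18.8, 25.8 and 28.9 CPM at day 0 (log2 fold change 1.44 ± 0.25, adjusted p = 0.00129). Ascl2, a regulator of the same stem cells, had 1.93, 2.12 and 2.76 CPM at day 4, against 4.22, 5.11 and 3.67 CPM at day 0 (adjusted p = 0.0938). The regenerative markers were higher in 10 and lower in 2 of 20 genes. Ly6a, which is also an interferon target, had 1596, 1678 and 1424 CPM at day 4, against 75.2, 83.2 and 116 CPM at day 0 (log2 fold change 4.10 ± 0.26, adjusted p = 1.22e-06). Anxa1 had 321, 279 and 256 CPM at day 4, against 163, 122 and 128 CPM at day 0 (log2 fold change 1.05 ± 0.20, adjusted p = 0.00203). Il33 had 51.2, 65.6 and 53.6 CPM at day 4, against 6.08, 3.86 and 5.3 CPM at day 0 (log2 fold change 3.26 ± 0.31, adjusted p = 2.19e-05). The lower genes were the keratins Krt23 (-1.98) and Krt17 (-2.61). The threshold was passed for Ascl2 without replicate 2 of day 6 (adjusted p = 0.0277).

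Some proliferation genes were higher at day 4 than at day 0, and most were higher than at day 2. Of 36 genes of the cell cycle and DNA replication 16 were higher at day 4 than at day 0 and none lower, against 21.2% and 12% of all genes, while 31 were higher than at day 2, against 21.0% of all genes in that comparison. The count against day 0 was 8 without replicate 1 of day 0 or of day 4, 10 without replicate 3 of day 0 or of day 4, and 30 without replicate 2 of day 6; it was 10 with median-of-ratios scaling and 7 with quantile normalization. Ccnd1, or cyclin D1, had 381, 380.5 and 349 CPM at day 4, against 80.7, 106 and 92.4 CPM at day 0 (log2 fold change 1.99 ± 0.41, adjusted p = 0.00354). Rrm2, a subunit of ribonucleotide reductase, had 83.8, 61.8 and 70.9 CPM at day 4, against 17.3, 20.6 and 18.2 CPM at day 0 (log2 fold change 1.89 ± 0.37, adjusted p = 0.0026). Mcm4, a subunit of the replicative helicase, had 67.2, 67.3 and 68 CPM at day 4, against 28.4, 28.6 and 31.6 CPM at day 0 (log2 fold change 1.17 ± 0.16, adjusted p = 0.00028). Mki67, the Ki-67 antigen, had 326, 186 and 238 CPM at day 4, against 110.3, 207 and 162 CPM at day 0 (adjusted p = 0.286). Its means were 159.8 ± 48.5, 122 ± 43.4, 250.2 ± 71 and 135 ± 71.8 CPM at days 0, 2, 4 and 6.

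Secretory epithelium lost transcripts unevenly. Of 23 goblet cell genes 16 were lower and none higher, with a median 1.81 below that of all genes, against 12% of all genes. Clca1, a protease of the mucus layer, had 1820.5, 866 and 865 CPM at day 4, against 10861, 27256 and 21731 CPM at day 0 (log2 fold change -4.07 ± 0.45, adjusted p = 5.76e-05). Ang4, an antimicrobial ribonuclease, had 21.7, 15.2 and 11.4 CPM at day 4, against 596, 2234 and 1638 CPM at day 0 (log2 fold change -6.29 ± 0.45, adjusted p = 2.85e-06). Best2, the bicarbonate channel of colonic goblet cells, had 0.161, 0.258 and 0.208 CPM at day 4, against 22.7, 13.4 and 4.59 CPM at day 0 (log2 fold change -3.36 ± 0.45, adjusted p = 0.000234). Spink4 had 130.4, 126 and 126 CPM at day 4, against 724, 801 and 612 CPM at day 0 (log2 fold change -2.47 ± 0.36, adjusted p = 0.000429). Guca2a, the hormone guanylin, had 198, 225 and 234 CPM at day 4, against 1227, 660.2 and 871 CPM at day 0 (log2 fold change -2.02 ± 0.23, adjusted p = 7.82e-05). Creb3l1, a transcription factor of secretory cells, had 132, 116 and 136 CPM at day 4, against 344, 440.4 and 355 CPM at day 0 (log2 fold change -1.56 ± 0.29, adjusted p = 0.00208). The structural mucin and other abundant goblet products did not pass the test. Muc2 had 7285, 9773 and 9239 CPM at day 4, against 10093, 17745 and 13394 CPM at day 0 (adjusted p = 0.136). Zg16 had 2567, 1959.6 and 1724 CPM at day 4, against 4135, 1670.3 and 2166 CPM at day 0 (adjusted p = 0.59). Tff3 had 412, 337 and 337 CPM at day 4, against 582, 392 and 454 CPM at day 0 (adjusted p = 0.347). Muc2 was called lower at day 6 than at day 4 (log2 fold change -2.15 ± 0.30, adjusted p = 0.00521), with 1672, 1492 and 3024 CPM at day 6. Of 7 mucin genes only Muc20 was called at day 4, lower (-1.02).

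Few enteroendocrine genes passed the test. Of 18, 1 was higher and 1 lower, against 21.2% and 12% of all genes. Chga had 54.6, 52 and 62.6 CPM at day 4, against 105, 66.1 and 73.6 CPM at day 0 (adjusted p = 0.0517). Pyy had 47.4, 38.5 and 35.4 CPM at day 4, against 57, 34.7 and 30.4 CPM at day 0 (adjusted p = 0.945). Gcg had 63.3, 60.6 and 51.6 CPM at day 4, against 80.6, 58.8 and 62.9 CPM at day 0 (adjusted p = 0.609). The lower gene was Pcsk1, a prohormone convertase (-1.22), and the higher one Tac1, which enteric neurons also express (1.39). Between day 4 and day 6, 6 of the 18 were called lower, against 0.951% of all genes, and 10 without replicate 3 of day 6. Of 15 tuft cell genes 6 were lower and 3 higher at day 4 than at day 0, against 12% and 21.2% of all genes. Trpm5, the taste channel of tuft cells, had 8.78, 7.6 and 10.3 CPM at day 4, against 17.3, 21.3 and 23.8 CPM at day 0 (log2 fold change -1.14 ± 0.18, adjusted p = 0.000607). Pou2f3, their defining transcription factor, had 0.642, 1.16 and 0.988 CPM at day 4, against 1.96, 2.87 and 3.36 CPM at day 0 (log2 fold change -0.94 ± 0.22, adjusted p = 0.00661). The higher genes included Vav1 (1.10) and Plcg2 (0.55), which myeloid cells also express. Plcg2 lost its call, and Chga was called lower, with median-of-ratios scaling, quantile normalization, edgeR or DESeq2. The call was lost for Plcg2 without replicate 1 or 3 of day 0, any library of day 2, any library of day 4 or replicate 1 of day 6 (adjusted p = 0.0501 to 0.192) and Tac1 without replicate 3 of day 0 or replicate 2 of day 4 (adjusted p = 0.0514 to 0.0538). A call was gained for Chga without replicate 2 of day 0, replicate 2 of day 2 or replicate 2 or 3 of day 6 (adjusted p = 0.0265 to 0.0496).

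**Figure D4:**
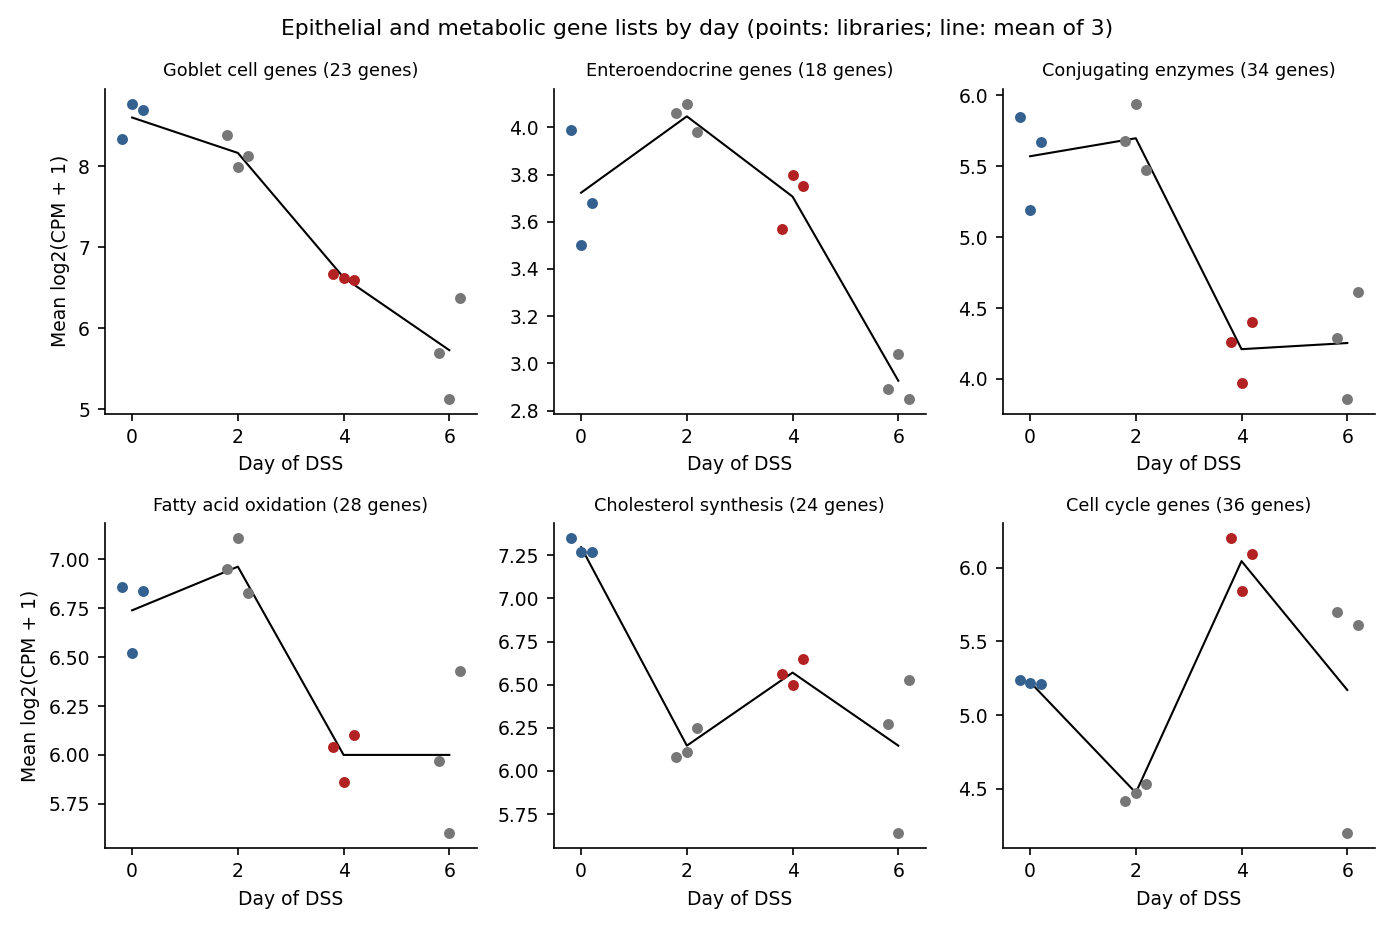
Mean log2(CPM + 1) over the tested members of 6 epithelial, metabolic and proliferation lists in each library, by day of harvest; 1 point is 1 library and the line joins the means of the days. Goblet cell and conjugating enzyme genes were lower at day 4 than at day 0, 6 of 18 enteroendocrine genes fell between days 4 and 6, and cholesterol genes were lower at day 2 than at day 4.

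Some genes of the absorptive epithelium fell. Of 27 colonocyte and brush border genes 9 were lower and 1 higher, against 12% and 21.2% of all genes, with 4 lower without replicate 3 of day 0 and 3 without replicate 2 of day 4. Vil1, or villin, had 952, 803 and 910.4 CPM at day 4, against 738, 725 and 842 CPM at day 0 (adjusted p = 0.588). Car1, a carbonic anhydrase of colonocytes, had 837, 491 and 776 CPM at day 4, against 1472, 709.8 and 1664 CPM at day 0 (adjusted p = 0.152). Fabp2, a fatty acid binding protein, had 58.3, 49.2 and 52.4 CPM at day 4, against 255, 177 and 226 CPM at day 0 (log2 fold change -2.01 ± 0.35, adjusted p = 0.00142). The higher gene was Plac8. Plac8 had 1255, 1115 and 1076 CPM at day 4, against 473, 313 and 437 CPM at day 0 (log2 fold change 1.51 ± 0.24, adjusted p = 0.000706). Of 30 epithelial transcription factors 5 were higher and 1 lower, with 3 higher without replicate 1 of day 4. Hnf4a had 837, 611 and 775 CPM at day 4, against 637, 771 and 889.7 CPM at day 0 (adjusted p = 0.923). Cdx2 had 224, 179 and 236 CPM at day 4, against 258, 282 and 335 CPM at day 0 (adjusted p = 0.47). Klf4 had 594, 379.9 and 464 CPM at day 4, against 548, 659 and 613 CPM at day 0 (adjusted p = 0.396). Yap1 had 139, 166 and 152 CPM at day 4, against 64, 87 and 77.1 CPM at day 0 (log2 fold change 1.00 ± 0.21, adjusted p = 0.00423). The lower gene was Foxa3, a factor of secretory cells (-1.50). Of 39 nuclear receptors 7 were lower and 1 higher, with 11 lower without replicate 2 of day 6. Vdr, the vitamin D receptor, had 103, 78.1 and 114 CPM at day 4, against 272, 337 and 377 CPM at day 0 (log2 fold change -1.73 ± 0.33, adjusted p = 0.00218). Ppara, a regulator of fatty acid oxidation, had 5.78, 6.57 and 9.1 CPM at day 4, against 21.1, 25.6 and 28.4 CPM at day 0 (log2 fold change -1.69 ± 0.21, adjusted p = 0.000156). A call no longer held for Foxa3 without replicate 1 or 3 of day 0 or any library of day 4 (adjusted p = 0.0519 to 0.0798). With 1 library left out, a call was gained for Car1 without replicate 2 of day 0 (adjusted p = 0.0485) and Cdx2 without replicate 2 of day 6 (adjusted p = 0.0277).

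Junction and adhesion genes were called in part. Of 18 claudins and tight junction genes 3 were higher and 2 lower, against 21.2% and 12% of all genes, with 1 higher without replicate 1 of day 4. Cldn7 had 730.2, 535 and 638 CPM at day 4, against 597, 522 and 567 CPM at day 0 (adjusted p = 0.712). Ocln, or occludin, had 53.9, 37.8 and 55 CPM at day 4, against 95.4, 91.4 and 97.4 CPM at day 0 (-0.96). F11r, a junctional adhesion molecule, had 289.7, 254 and 265 CPM at day 4, against 109, 200.4 and 155 CPM at day 0 (log2 fold change 0.84 ± 0.22, adjusted p = 0.0126). Of 21 genes of adherens junctions, desmosomes and integrins 8 were higher and none lower, against the same shares, with 5 without replicate 1 of day 0 or of day 4, 4 without replicate 2 of day 4 and 14 without replicate 2 of day 6. Itgav, an integrin alpha chain, had 145, 133 and 110.0 CPM at day 4, against 38, 55.1 and 55 CPM at day 0 (log2 fold change 1.38 ± 0.24, adjusted p = 0.00116). Itgb6, the epithelial beta 6 chain that pairs with it, had 77, 46.9 and 50 CPM at day 4, against 19.5, 25.8 and 26 CPM at day 0 (log2 fold change 1.23 ± 0.30, adjusted p = 0.00921). Itga3, a laminin receptor chain, had 370.0, 293 and 334 CPM at day 4, against 129, 174 and 144 CPM at day 0 (log2 fold change 1.15 ± 0.17, adjusted p = 0.000389). These 3 genes kept their calls in every omission. Cdh1, or E-cadherin, had 1105, 858 and 942 CPM at day 4, against 717, 908 and 896 CPM at day 0 (adjusted p = 0.606). Epcam had 1378, 1131 and 1281 CPM at day 4, against 1680.4, 1200.1 and 1362 CPM at day 0 (adjusted p = 0.726). The adjusted p rose above 0.05 for Ocln without replicate 2 of day 4 (adjusted p = 0.06).

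Many salt and water transport genes fell. Of 15 genes of sodium transport and the aldosterone response 7 were lower and 2 higher, against 12% and 21.2% of all genes. The lower count was 3 without replicate 1 of day 0 or replicate 1 or 3 of day 4, and 4 without replicate 3 of day 0 or replicate 2 of day 4. Scnn1a, a subunit of the epithelial sodium channel, had 69.1, 58.2 and 52.3 CPM at day 4, against 161, 206 and 163 CPM at day 0 (log2 fold change -1.54 ± 0.33, adjusted p = 0.00462). Hsd11b2, the enzyme that protects the aldosterone receptor from glucocorticoids, had 71.7, 62.7 and 58.4 CPM at day 4, against 280.3, 183 and 163 CPM at day 0 (log2 fold change -1.65 ± 0.39, adjusted p = 0.00736). Slc9a2, a sodium-proton exchanger, had 150.1, 106 and 157 CPM at day 4, against 288, 260.3 and 358 CPM at day 0 (log2 fold change -1.13 ± 0.26, adjusted p = 0.00663). Of 25 genes of chloride, bicarbonate, potassium and proton transport 9 were lower and 2 higher, with 5 lower without replicate 2 of day 4. Slc12a2, the basolateral chloride uptake carrier, had 140.3, 122 and 135 CPM at day 4, against 230.0, 396 and 379.7 CPM at day 0 (log2 fold change -1.30 ± 0.26, adjusted p = 0.00284). Cftr had 54.3, 29.9 and 40.1 CPM at day 4, against 102, 126 and 113 CPM at day 0 (-1.47). Slc26a3, the chloride-bicarbonate exchanger, had 289.9, 147 and 203 CPM at day 4, against 527, 446 and 408 CPM at day 0 (-1.16). Atp12a, a proton-potassium pump, had 65.2, 12.8 and 14.2 CPM at day 4, against 5.16, 8.81 and 0.84 CPM at day 0 (log2 fold change 2.32 ± 0.69, adjusted p = 0.024). Of 5 aquaporins 3 were lower and 1 higher, with 1 lower without replicate 3 of day 0 or replicate 2 of day 4. Aqp1, the water channel of endothelium, had 24.1, 29.2 and 37.4 CPM at day 4, against 164, 98.9 and 129.5 CPM at day 0 (log2 fold change -2.07 ± 0.27, adjusted p = 0.000174). Aqp8, a water channel of surface colonocytes, had 215, 76 and 112 CPM at day 4, against 508, 287 and 362 CPM at day 0 (-1.61). Aqp4, the basolateral channel, had 837, 438 and 495 CPM at day 4, against 544, 782 and 610.4 CPM at day 0 (adjusted p = 0.768). With 1 library left out, the call ended for Aqp8 without replicate 1 or 3 of day 0 or replicate 2 or 3 of day 4 (adjusted p = 0.0782 to 0.134), Atp12a without replicate 3 of day 0 or replicate 1 of day 4 (adjusted p = 0.0892 to 0.0951), Cftr without replicate 2 of day 4 (adjusted p = 0.0625), and Slc26a3 without replicate 2 of day 4 (adjusted p = 0.0528).

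Fatty acid oxidation, on which colonocytes depend for burning butyrate, was lower in 14 of 28 genes and higher in 1. Its median was 0.8 below that of all genes. For this and the next lists, the shares of all genes were 12% lower and 21.2% higher. Acsf2, an acyl-CoA synthetase, had 74.4, 49.2 and 69.5 CPM at day 4, against 133, 169 and 196 CPM at day 0 (log2 fold change -1.36 ± 0.28, adjusted p = 0.00322). Hadh, a dehydrogenase of beta-oxidation, had 91.6, 77.9 and 89.9 CPM at day 4, against 341, 194 and 261 CPM at day 0 (log2 fold change -1.57 ± 0.33, adjusted p = 0.00423). Acaa2, the thiolase of its last step, had 45.8, 44.1 and 51.1 CPM at day 4, against 219.6, 89.8 and 143 CPM at day 0 (log2 fold change -1.57 ± 0.26, adjusted p = 0.000844). Ppargc1a, a coactivator of mitochondrial genes, had 6.5, 7.98 and 8.19 CPM at day 4, against 23.8, 28 and 32.3 CPM at day 0 (log2 fold change -1.76 ± 0.27, adjusted p = 0.000599). The higher gene was Acadl. Acadl, the long-chain acyl-CoA dehydrogenase, had 321, 248 and 288 CPM at day 4, against 116, 87 and 112 CPM at day 0 (log2 fold change 1.44 ± 0.17, adjusted p = 0.000109). The citric acid cycle had 4 of 23 genes lower and none higher, with 12 lower without replicate 2 of day 6 and 8 without replicate 3 of day 6. Cs, or citrate synthase, had 534, 434 and 533 CPM at day 4, against 574, 598 and 603 CPM at day 0 (adjusted p = 0.392). Of 40 nuclear genes of the respiratory chain 8 were lower and none higher, with 2 to 23 over the omissions of a library, the lowest without replicate 1 of day 0 or replicate 2 of day 4 and the highest without replicate 2 of day 6. Glycolysis and hypoxia genes were higher in 9 and lower in 5 of 28. Hk2, a hexokinase, had 779.7, 539 and 499 CPM at day 4, against 98.9, 188 and 176 CPM at day 0 (log2 fold change 1.99 ± 0.31, adjusted p = 0.000618). Hif1a, the oxygen-regulated transcription factor, had 432, 329.7 and 297 CPM at day 4, against 102, 144 and 90 CPM at day 0 (log2 fold change 1.66 ± 0.22, adjusted p = 0.000203). Pfkfb3, a kinase that speeds glycolysis, had 118, 107 and 99 CPM at day 4, against 15.5, 19.4 and 19.6 CPM at day 0 (log2 fold change 2.51 ± 0.30, adjusted p = 0.00011). Ldha had 1296, 1141 and 1317 CPM at day 4, against 1218, 995 and 1299 CPM at day 0 (adjusted p = 0.714).

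Cholesterol synthesis genes were lower than at day 0 and had been lower still at day 2. Of 24 genes 15 were lower at day 4 than at day 0 and none higher, with a median 0.99 below that of all genes. Hmgcs1, the first committed step of the pathway, had 298, 307 and 352 CPM at day 4, against 652, 744 and 686 CPM at day 0 (log2 fold change -1.12 ± 0.22, adjusted p = 0.00248). Insig1, a sterol-regulated retention factor, had 109.5, 123 and 129.7 CPM at day 4, against 383, 281 and 439 CPM at day 0 (log2 fold change -1.58 ± 0.24, adjusted p = 0.000477). Mvd had 60, 61.7 and 69.5 CPM at day 4, against 205, 139 and 147 CPM at day 0 (log2 fold change -1.33 ± 0.18, adjusted p = 0.000291). At day 2, 13 of the 24 were already lower than at day 0 (0.203% of all genes were), and 10 were higher at day 4 than at day 2 (21.0% of all genes were). The day 2 count was 7, 5 and 7 without replicate 1, 2 and 3 of day 0, 6, 6 and 8 without replicate 1, 2 and 3 of day 2, and 20 without replicate 2 of day 6. The rise from day 2 was called in 5 genes without replicate 1 or 2 of day 2 or replicate 3 of day 4, and in 6 without replicate 1 of day 4. Mean levels of Hmgcs1 were 694 ± 46.9, 212 ± 49.5, 319 ± 28.6 and 211 ± 56.9 CPM at days 0, 2, 4 and 6, and those of Insig1 368 ± 80.2, 97.2 ± 4.56, 121 ± 10.3 and 84.6 ± 27.4 CPM at days 0, 2, 4 and 6. Srebf2, the transcription factor of the pathway, had 397, 398 and 397 CPM at day 4, against 293, 416 and 346 CPM at day 0 (adjusted p = 0.355).

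Drug-metabolizing genes were among the most widely reduced. Of 34 conjugating enzymes and carboxylesterases 22 were lower and 1 higher, with a median 1.29 below that of all genes. Sult1a1, a sulfotransferase of phenols, had 7.41, 4.7 and 6.37 CPM at day 4, against 255, 136 and 204 CPM at day 0 (log2 fold change -4.77 ± 0.24, adjusted p = 3.62e-07). Ces2a, a carboxylesterase, had 14.3, 7.79 and 22.5 CPM at day 4, against 183, 92.5 and 146 CPM at day 0 (log2 fold change -3.21 ± 0.47, adjusted p = 0.000424). Ces2c, its paralog, had 35.9, 16.5 and 34.7 CPM at day 4, against 212, 117 and 206 CPM at day 0 (-2.60). Sult1c2, another sulfotransferase, had 2.84, 1.77 and 1.56 CPM at day 4, against 30.1, 21.8 and 26 CPM at day 0 (log2 fold change -3.15 ± 0.24, adjusted p = 3.58e-06). Ugt1a1, which conjugates bilirubin, had 2.7, 1.55 and 6.5 CPM at day 4, against 18.9, 11.4 and 27.1 CPM at day 0 (log2 fold change -2.20 ± 0.48, adjusted p = 0.00467). Gstm1, a glutathione transferase, had 57.7, 61.1 and 66.4 CPM at day 4, against 249, 179 and 213 CPM at day 0 (log2 fold change -1.76 ± 0.16, adjusted p = 1.58e-05). Of 23 cytochrome P450 genes of families 1 to 4 there were 15 lower and 2 higher, with a median 1.43 below that of all genes. Cyp2c55, of family 2, had 45.2, 14.5 and 41.8 CPM at day 4, against 1526, 557 and 1189 CPM at day 0 (log2 fold change -5.00 ± 0.43, adjusted p = 1.15e-05). Cyp2c68 had 0.161, 0.0966 and 0.312 CPM at day 4, against 30.6, 8.81 and 4.17 CPM at day 0 (log2 fold change -3.30 ± 0.54, adjusted p = 0.00089). Cyp2s1 had 29.4, 18.4 and 41.4 CPM at day 4, against 93.2, 114 and 127 CPM at day 0 (-1.93). The 3 day 0 values of each lay above its day 4 values. Cyp3a13, of family 3, had 33.1, 21.9 and 38.6 CPM at day 4, against 114, 86 and 142 CPM at day 0 (-1.84). Cyp4f14, of family 4, had 74.9, 48.9 and 73.2 CPM at day 4, against 230.5, 152 and 257 CPM at day 0 (-1.67). The higher genes were Cyp4f18, which inactivates leukotriene B4 in neutrophils (1.85), and Cyp4v3 (0.60). The call was lost for Cyp4v3 without any library of day 0 or replicate 2 or 3 of day 4 (adjusted p = 0.0527 to 0.117).

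The Cyp2c68 promoter carries an HNF4 element, searched as CAAAGTCCA, shown in capitals 69 to 77 bases before the start. The same letters were found for 58 of 11736 genes with a promoter (0.494%). The share was 0.654% for genes called lower (9 of 1377) and 0.556% for genes called higher (14 of 2516). Among genes lower by over 4-fold, 3 of 109 held it. These letters were found for 3 of 20 P450 genes (Cyp2c65, Cyp2c68 and Cyp2c69) and for none of 30 conjugating enzyme genes. Those P450 genes are close paralogs, so their matches may not be separate occurrences.
Cyp2c68 (chr19:39741135-39741214, minus strand): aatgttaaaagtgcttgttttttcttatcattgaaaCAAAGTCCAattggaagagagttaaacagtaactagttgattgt

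The lists of this paragraph are to be read beside the shares of all genes, 21.2% higher and 12% lower. Retinoid genes split evenly, with 5 of 21 higher and 5 lower. Adh1, an alcohol dehydrogenase, had 34.2, 24 and 27.1 CPM at day 4, against 346, 247 and 185 CPM at day 0 (log2 fold change -3.11 ± 0.25, adjusted p = 5.96e-06). Lrat, which stores retinol as esters, had 0.482, 0.644 and 0.91 CPM at day 4, against 7.8, 8.41 and 9.45 CPM at day 0 (log2 fold change -2.51 ± 0.22, adjusted p = 1e-05). The higher genes included enzymes of retinol and retinal oxidation. Dhrs9 had 159, 75.5 and 79.6 CPM at day 4, against 13.7, 26.1 and 27.5 CPM at day 0 (log2 fold change 2.15 ± 0.30, adjusted p = 0.000342). Aldh1a3 had 34.2, 34.2 and 28.8 CPM at day 4, against 6.91, 6.57 and 7.74 CPM at day 0 (log2 fold change 2.05 ± 0.21, adjusted p = 3.11e-05). Of 26 NRF2 targets and antioxidant genes 7 were higher and none lower, among them Sod3 (1.68) and Hmox1 (1.60). Of 22 genes of metals 4 were higher and 5 lower, with 3 lower without replicate 3 of day 0 or replicate 1 of day 4. Slc39a5, a zinc importer of the basolateral membrane, had 20.6, 13.3 and 24 CPM at day 4, against 107, 63.9 and 79 CPM at day 0 (log2 fold change -2.06 ± 0.49, adjusted p = 0.00832). Of 26 genes of the unfolded protein response 7 were higher and 2 lower, with 3 to 4 higher without replicate 1 or 3 of day 0 or any of the day 4 libraries and 2 with median-of-ratios scaling. Ern2, the stress sensor of mucous cells, had 62.6, 65 and 65.3 CPM at day 4, against 177, 218 and 192 CPM at day 0 (log2 fold change -1.59 ± 0.41, adjusted p = 0.0123).

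Genes of the ribosome and of muscle, nerve and pancreas were also examined, beside shares of 21.2% higher and 12% lower over all genes. None of 36 cytosolic ribosomal protein genes was called by limma in either direction, with a median 0.24 below that of all genes; 1 had an unadjusted p below 0.05, edgeR called none and DESeq2 called 3, all lower. Smooth muscle genes were lower in 7 and higher in 1 of 19, with 4 lower without replicate 3 of day 0, 2 without replicate 1 of day 4, and 12 and 11 without replicate 2 and 3 of day 6. Actg2, the enteric smooth muscle actin, had 326, 425 and 442 CPM at day 4, against 1561, 1049 and 1478 CPM at day 0 (log2 fold change -1.77 ± 0.25, adjusted p = 0.000348). Myh11, the smooth muscle myosin, had 1237, 2001 and 1754 CPM at day 4, against 1629.7, 2498 and 2395 CPM at day 0 (adjusted p = 0.472). The mean log2(CPM + 1) of the list was 7.25, 7.96 and 7.73 at day 4 and 8.16, 8.13 and 8.26 at day 0. That of 14 skeletal muscle markers, of which 1 was lower, was 2.13, 2.65 and 2.13 at day 4 and 2.28, 3.49 and 0.868 at day 0. Of 13 pancreatic acinar genes only 1 reached 1 CPM in at least 3 libraries and could be tested, and it was lower. Cela1, an elastase, had 19.4, 16.4 and 18.1 CPM at day 4, against 194, 77 and 71.1 CPM at day 0 (log2 fold change -2.45 ± 0.40, adjusted p = 0.000928). Together with Clps, it moved with the day, and the part of such tissue in the results was not tested. Of 19 genes of enteric neurons, glia and interstitial cells 3 were higher and 2 lower. Gfap, a filament of reactive glia, had 28.9, 36.5 and 45 CPM at day 4, against 5.54, 4.8 and 6.25 CPM at day 0 (log2 fold change 2.52 ± 0.33, adjusted p = 0.000194).

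Targets of glucocorticoids showed no common direction, with 5 of 17 higher and 3 lower, against 21.2% and 12% of all genes. Zbtb16 had 12.1, 21.7 and 18.9 CPM at day 4, against 1.08, 2.3 and 2.31 CPM at day 0 (log2 fold change 2.68 ± 0.43, adjusted p = 0.000794). Angptl4 had 16.9, 19.4 and 28.9 CPM at day 4, against 1.29, 0.685 and 2.31 CPM at day 0 (log2 fold change 3.25 ± 0.30, adjusted p = 1.72e-05). Tsc22d3 had 21.6, 32.7 and 31 CPM at day 4, against 60, 43.1 and 51.1 CPM at day 0 (-0.84). Fkbp5 had 142, 129 and 144 CPM at day 4, against 104, 104 and 115 CPM at day 0 (adjusted p = 0.0745). Between day 4 and day 6, 7 of the 17 were called higher, against 1.9% of all genes. Clock genes were lower in 5 and higher in 1 of 19, with 2 without replicate 3 of day 0 or replicate 1 of day 4, 3 without replicate 1 of day 0 or replicate 3 of day 4, and 8 without replicate 2 of day 6. Dbp, an output gene of the clock, had 13.1, 36.2 and 24.4 CPM at day 4, against 73.2, 38.5 and 63.2 CPM at day 0 (-1.27). Nfil3 had 24, 36.1 and 19.1 CPM at day 4, against 4.25, 7.16 and 5.7 CPM at day 0 (log2 fold change 2.01 ± 0.39, adjusted p = 0.00238). The labels give no hour of harvest. A call no longer held for Dbp without replicate 1 or 3 of day 0 or replicate 1 of day 4 (adjusted p = 0.0643 to 0.0773) and Tsc22d3 without replicate 1 or 3 of day 0 or replicate 1 or 3 of day 4 (adjusted p = 0.0598 to 0.124). The threshold was passed for Fkbp5 without replicate 1 of day 2 or replicate 2 of day 6 (adjusted p = 0.0484 to 0.049).

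**Figure D5:**
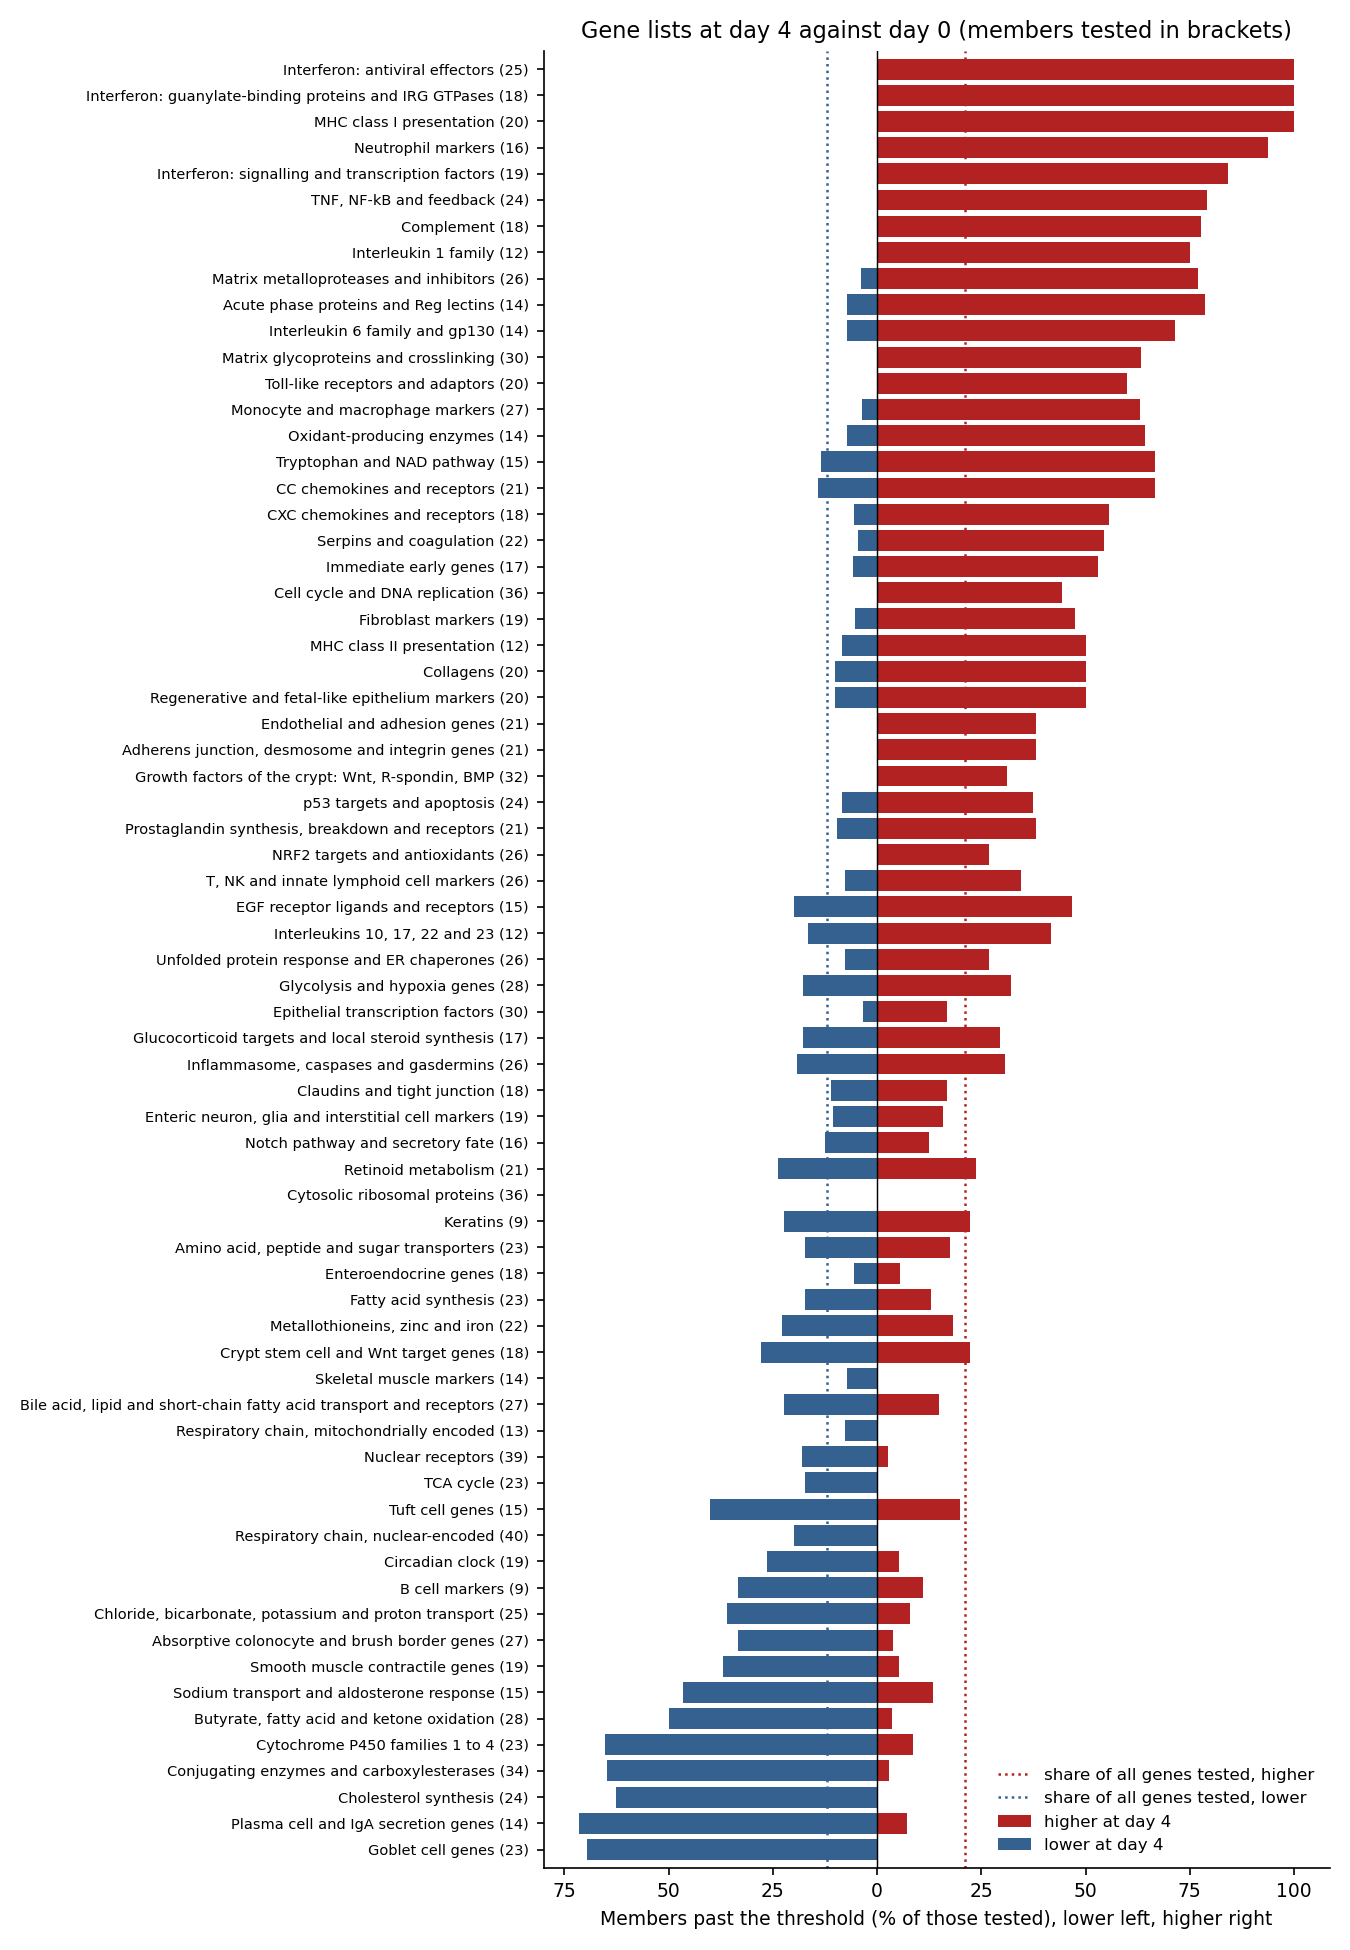
Share of tested members called higher (bars to the right) and lower (bars to the left) at day 4 than at day 0, in percent, for lists with at least 9 tested members. Dotted lines mark the shares over all genes, 21.2% higher and 12% lower; the antiviral, GTPase and MHC class I lists reach 100% and the plasma cell, goblet cell and cytochrome P450 lists extend furthest left.

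Few genes passed the test both against day 0 and against day 6. There were 88 genes (0.577% of those tested) higher at day 4 than at both day 0 and day 6, and 30 (0.197%) lower than at both. Another 127 (0.833%) were higher than at day 0 and higher again at day 6, and 26 (0.171%) lower and lower again. All 4 counts were smaller without any one day 4 library (23 to 28, 4 to 9, 30 to 64, and 7 to 14) and larger without replicate 3 of day 6 (307, 115, 715 and 166) or with DESeq2 (292, 146, 355 and 92). The second was also 18 without replicate 3 of day 0 and 14 without replicate 1 of day 6. The third was 79, 82, 47 and 77 without replicate 3 of day 0, replicate 3 of day 2, replicate 1 of day 6 and replicate 2 of day 6, and the fourth was 11 without replicate 1 of day 6. The 8 with the largest rise at day 4 among those lower again at day 6 were Ifi44 (5.21), Slfn4 (4.74), Ccl7 (4.50), Ifit3 (4.37), Isg15 (4.35), Slfn5 (4.14), Phf11a (4.09) and Trim30a (4.07). Slfn4 ran at 113 ± 84.1, 52.8 ± 10.6, 2508 ± 382 and 369 ± 190.5 CPM at days 0, 2, 4 and 6. The 8 with the largest fall among those higher again at day 6 were Sult1a1 (-4.77), Selenbp1 (-2.82), Hhip (-2.68), Lrat (-2.51), Rnf152 (-2.02), Cd79a (-1.85), Pdcd4 (-1.83) and Mt3 (-1.81). Selenbp1, a selenium-binding protein of differentiated epithelium, ran at 649.9 ± 235, 779 ± 94, 88.8 ± 19.1 and 199 ± 40.7 CPM at days 0, 2, 4 and 6, and Hhip, an inhibitor of hedgehog signalling, at 22.3 ± 8.1, 10.3 ± 2.32, 2.51 ± 0.37 and 7.38 ± 0.479 CPM at days 0, 2, 4 and 6. The call of day 6 against day 4 held in all 12 omissions for Ifi44, Ifit3, Phf11a and Sult1a1, and was lost in at least 1 for the other genes named here. The adjusted p rose above 0.05 for Mt3 without replicate 1 or 3 of day 0 or replicate 1 of day 4 (adjusted p = 0.0518 to 0.0807).

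The 8 genes that rose most between day 4 and day 6, among those already higher at day 4, included markers of neutrophils and macrophages and acute phase proteins. Chil3, a chitinase-like lectin of myeloid cells, ran at 0.385 ± 0.374, 0.069 ± 0.0762, 13.9 ± 3.95 and 408 ± 319 CPM at days 0, 2, 4 and 6 (log2 fold change 4.38 ± 0.57, adjusted p = 0.0045, day 6 over day 4). Lcn2, the siderophore-binding lipocalin, ran at 2.43 ± 0.518, 2.45 ± 0.376, 45.5 ± 11.7 and 662 ± 394 CPM at days 0, 2, 4 and 6. Cxcl13, the chemokine of B cell follicles, ran at 2.05 ± 0.322, 2.41 ± 1.22, 9.59 ± 0.587 and 145 ± 87.5 CPM at days 0, 2, 4 and 6. The others were Mmp8, Serpina3m, Il1r2, Saa3 and Hp. Of these 8, Saa3 lost its call of day 6 against day 4 in 9 of 12 omissions (adjusted p = 0.0588 to 0.175). Lcn2 and Chil3 were already above day 0 at day 4, by 3.74 and 3.43 on the log2 scale. Of the 16 neutrophil markers 8 were called higher at day 6 than at day 4, against 1.9% of all genes. The count was 4 to 5 when 1 day 4 library or replicate 1 or 2 of day 6 was left out. It was 13 without replicate 3 of day 6. Of the 27 monocyte and macrophage markers 8 were called higher at day 6, against the same share. The count was 4 without replicate 1 or 3 of day 4 and 20 without replicate 3 of day 6. Over all genes, calls in either direction between those days rose from 434 to 2250 without replicate 3 of day 6.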

How the data were processed

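Poly(A) RNA from mid-colon was extracted with TRIzol and sequenced from 12 libraries, 3 at each of days 0, 2, 4 and 6, per the labels' protocols. The authors deposited CPM values per gene symbol. HISAT2 2.2.1, featureCounts 2.0.1 and mm10 are named, per the submitters' processing notes. Which annotation and which strand setting were used is not given in the sources used here: overlapping and antisense genes cannot be told apart. In each library 100% of CPM values were whole multiples of 1 read (within 0.1 read), which gave depths of 31058910 to 41011003 reads; 0.196 to 0.797% of the CPM total lay outside the listed genes.

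The 15246 genes that reached 1 CPM in 3 or more libraries entered limma 3.58.1, run in R 4.3.3 on log2(CPM + 1) values, with all 12 libraries in 1 fit, trended and robust moderation, and Benjamini-Hochberg adjustment. On simulated data for day 4 against day 0 with 15246 genes, limma called 71% of 100 genes changed 2-fold and 100% of 100 changed 4-fold, with 5 false calls. The simulation gave every gene the same dispersion and changed only those genes, at day 4. Its shares are therefore not the power or error rate of the real comparison. Alternatives were other pseudocounts, filters, scalings and moderation, the 6 libraries of days 0 and 4 alone, a replicate block, each library left out, and edgeR 4.0.16 and DESeq2 1.42.0 on the recovered reads. edgeR called 2415 genes higher and 2457 lower, and DESeq2 2877 and 2970.

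Of 74 gene lists with 1609 symbols, 7 symbols were absent from the table and 1426 genes were tested. The members and lists were chosen with earlier results of these data known. Named genes were the 12 largest rises and falls (mean of at least 5 CPM over both days, no overlap), the 8 largest gains and losses in CPM, the 8 largest rises or falls that turned back at day 6, the 8 that went furthest on, and list members beside their list's count; unnamed and predicted genes and pseudogenes were left out. Promoters (RefSeq, GRCm38.p6) matched 11736 tested genes by symbol. Motif letters were set by hand from textbook consensus sites. Some genes that this rule or a list holds are not reported here.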

Additional observations from a re-analysis of the deposited data

Results flagged for a closer look

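The results below are those in which the change up to day 4 differed from the change up to day 6, by the test of day 6 against day 4 in the same limma fit. They rest on the same libraries as the report, and no explanation was tested.

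Genes higher at day 4 than at days 0 and 6 numbered 88, and genes lower than on both numbered 30. Genes higher at day 4 and higher again at day 6 numbered 127, and genes lower and lower again numbered 26.

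Among the 8 largest rises that turned back, the log2 fold change of day 6 over day 4 was -2.42 for Ifi44, -2.88 for Slfn4, -0.88 for Ccl7, -2.55 for Ifit3, -2.45 for Isg15, -1.06 for Slfn5, -2.22 for Phf11a and -1.42 for Trim30a. Among the 8 largest falls that turned back it was 2.19 for Sult1a1, 1.16 for Selenbp1, 1.26 for Hhip, 0.97 for Lrat, 1.14 for Rnf152, 1.16 for Cd79a, 0.80 for Pdcd4 and 2.31 for Mt3. Among the 8 that rose furthest after day 4 it was 4.38 for Chil3, 3.60 for Lcn2, 3.51 for Cxcl13, 3.44 for Mmp8, 3.36 for Serpina3m, 2.94 for Il1r2, 2.82 for Saa3 and 2.76 for Hp.

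Ifi44, Ifit3, Phf11a, Sult1a1, Chil3, Lcn2, Cxcl13, Mmp8, Serpina3m, Il1r2 and Hp kept this call in all 12 omissions of 1 library. Among the rises that turned back, the call of day 6 against day 4 was lost, with the adjusted p in parentheses, for Slfn4 without replicate 1 or 3 of day 4 (0.0554 to 0.0623), Isg15 without any library of day 4 or replicate 1 or 2 of day 6 (0.0566 to 0.117), Ccl7 without replicate 3 of day 0, any library of day 2, any library of day 4 or replicate 2 of day 6 (0.054 to 0.137), Slfn5 without any library of day 4 or replicate 2 of day 6 (0.0706 to 0.127) and Trim30a without any library of day 4 or replicate 2 of day 6 (0.0617 to 0.107). Among the falls that turned back, it was lost for Selenbp1 without replicate 3 of day 0, any library of day 2, any library of day 4 or replicate 1 of day 6 (0.0583 to 0.121), Hhip without replicate 1 or 3 of day 4 or replicate 1 of day 6 (0.0655 to 0.0984), Lrat without replicate 2 or 3 of day 0, replicate 2 or 3 of day 2, any library of day 4 or replicate 1 or 2 of day 6 (0.0539 to 0.165), Rnf152 without replicate 3 of day 0, replicate 1 or 3 of day 2, any library of day 4 or replicate 1 or 2 of day 6 (0.0564 to 0.207), Cd79a without any library of day 4 or replicate 1 of day 6 (0.0541 to 0.122), Pdcd4 without replicate 1 of day 4 (0.0515) and Mt3 without any library of day 0, any library of day 2, any library of day 4 or replicate 1 or 2 of day 6 (0.0508 to 0.169). Among the genes that rose again, it was lost for Saa3 without replicate 2 of day 0, any library of day 2, any library of day 4 or replicate 1 or 2 of day 6 (0.0588 to 0.175).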

How the results depend on the processing

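Beside the omissions 12 settings were tried. Most changed 1 choice; the fit without trend and robust moderation dropped both options, and edgeR and DESeq2 changed the test, its input and the scaling together. The counts of day 4 against day 0 stayed within 1.5 times of 3225 higher and 1833 lower genes, except that DESeq2 called 2970 lower. DESeq2 also gave 1344 calls between day 6 and day 4 and 540 between day 2 and day 0, with 292 genes higher and 146 lower at day 4 than at days 0 and 6, 355 higher again and 92 lower again at day 6. With a mean of at least 5 CPM as the filter there were 258 calls between day 6 and day 4, 30 between day 2 and day 0, 18 genes lower at day 4 than at days 0 and 6, and 83 higher again at day 6. The cause of these moves was not tested. Of 303 genes named in the text, 267 were called at day 4 against day 0; 237 of these kept the call under every setting and omission that tested them, and none changed sign while called. Calls also ended with quantile normalization for Cyp4v3, Prdm1 and Rn45s, with median-of-ratios scaling and edgeR for Duox2, and with edgeR for F11r; edgeR and DESeq2 called Trem2, and DESeq2 called Car1, Muc2 and Ngp.

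Leaving out each library in turn gave 2263 (without replicate 2 of day 4) to 4350 (without replicate 2 of day 6) higher genes and 1291 (without replicate 1 of day 4) to 2408 (without replicate 2 of day 6) lower genes. It gave 3864 to 6535 calls between day 4 and day 2, 115 to 2250 between day 6 and day 4, and 13 to 557 between day 2 and day 0. Genes peaking at day 4 numbered 23 to 307, those at their lowest 4 to 115, those higher again at day 6 30 to 715, and those lower again 7 to 166. List genes called at day 4 against day 0, 708 as reported, numbered 569 to 884.

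With a replicate block there were 3474 higher and 1953 lower genes. Deviations of same-numbered libraries of day 4 and day 0 correlated at -0.02, 0.195 and 0.0281, and over all pairs of days at -0.212 to 0.636, so the numbers were not taken to pair the samples.

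Depth limits genes with few reads: 1 read was worth 0.0244 to 0.0322 CPM, and floors cover counting error only. With 3 libraries a day, 71% of simulated 2-fold changes were called, in a simulation with the same dispersion for every gene.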
